A study of Mus musculus with 24 samples.

Results

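The transcriptomes of wild-type granulocyte-macrophage progenitors (GMP) were set against those of the wild-type LSK fraction of the same tissue, mouse bone marrow. LSK cells lack mature lineage markers and carry Sca1 and c-Kit on their surface, a gate that holds haematopoietic stem cells and multipotent progenitors. GMP are the committed progenitors that give rise to neutrophils and monocytes, and the usual gate takes cells that have c-Kit, CD34 and Fc gamma receptors but no Sca1. Members of the comparison were chosen by the submitters' labels alone: 3 WT LSK and 3 WT GMP libraries, 6 of the 24 in the series. All mice were C57BL/6, and the cells were sorted by flow cytometry and lysed in TRIzol. No allele, Cre or treatment is given for the wild type. The other 18 libraries came from LSK and GMP of mice with an internal tandem duplication of Flt3 (ITD), mice with a floxed Ern1, the gene of the endoplasmic reticulum stress sensor IRE1 alpha, deleted by VavCre, which is driven by a promoter active throughout the blood system (IRE1_KO), and mice with both alterations (IRE1_KO_ITD), and they are used here only for the last comparison. Age and the number of animals behind a library are not given, and no label says that replicates came from separate mice, so the p-values measure the spread between these libraries.

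In blood formation, stem cells are held in a quiescent, self-renewing state by a network of transcription factors that includes HLF, MEIS1, the MECOM locus and the HOXA cluster. Commitment to the granulocyte and monocyte lineages is driven by PU.1 (Spi1) and the C/EBP factors. Promyelocytes, the first granule-bearing stage after the GMP, fill primary granules with myeloperoxidase and serine proteases, and later stages make secondary and tertiary granules. These granule proteins are made on ribosomes of the endoplasmic reticulum (ER), so granulocytic commitment also calls on the machinery that folds secreted proteins.

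Values are FPKM, fragments mapped to a gene scaled to transcript length and to the size of the library, which can be compared between genes. A gene was tested when it reached 1 FPKM in at least 3 of the 6 libraries. Differences are log2 fold changes, GMP minus LSK, on log2(FPKM + 1), which understates the change of genes at low levels. The test was limma's moderated test with Benjamini-Hochberg adjustment over all genes tested, and a gene is called when its adjusted p is under 0.05. A value after ± is the SD of 3 libraries for FPKM and the standard error for a log2 fold change. Library values are given in the order of replicates 1, 2 and 3.

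Of 23991 symbols, 11307 were tested and 5986 (52.9%) were called: 2329 were higher in GMP (20.6%) and 3657 lower (32.3%). The groups did not overlap for 2828 genes on the higher side (25.0%) and 4224 on the lower side (37.4%). Among the called genes, 661 were higher and 1301 lower by at least 1 log2 unit, and 69 were higher and 81 lower by at least 3. The median over all genes tested was -0.10, and quantile normalization, which brings that median close to 0, gave 2948 higher and 2923 lower genes, so the excess of lower over higher calls depended on the scaling. At the level of 1 FPKM, 9682 genes were present in all 6 libraries, 642 were present in all 3 LSK libraries and in none of GMP, and 127 showed the reverse. A tested gene under 1 FPKM in every library of a population passed the filter through the other population alone. This favours a higher value in that other population and holds for every such tested gene named below. The GMP transcriptome was the narrower: 10436 to 10539 genes reached 1 FPKM in a GMP library against 11239 to 11394 in an LSK library, and the 10 most abundant genes held 15.5 to 18.8% of the FPKM sum in GMP against 10.1 to 10.9% in LSK.

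**Figure D1:**
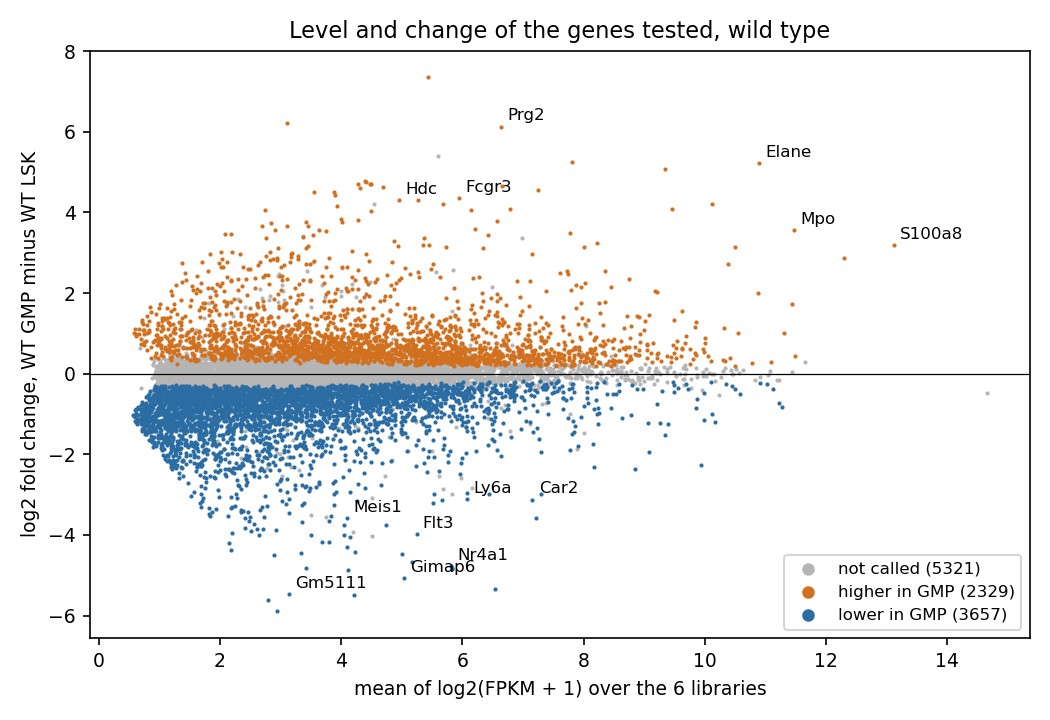
Each point is 1 of the 11307 genes tested: the x axis is its mean log2(FPKM + 1) over the 6 wild-type libraries and the y axis its log2 fold change, GMP minus LSK, with called genes in orange (2329 higher) or blue (3657 lower). Neutrophil genes such as Elane and S100a8 combine a high level with a rise, while the genes with the deepest falls, such as Gimap6 and Gm5111, have intermediate means.

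The read depth is not in the files, but the steps of low FPKM values put the libraries within 1.11 times of each other. Replicates correlated at r = 0.954 to 0.964 across genes in LSK and 0.967 to 0.975 in GMP, and libraries of different populations at 0.861 to 0.903. Genes are not independent replicates, so these r values describe likeness only. One LSK library stood apart: replicate 1 held more granulocytic and B-cell transcripts than replicates 2 and 3. The sum over the primary granule list was 6351, 3842 and 4427 FPKM in the 3 LSK libraries, that over the B-cell markers was 310.3, 156 and 169 FPKM, and Klf1, the master regulator of red cell genes, was at 21.05, 5.297 and 5.07 FPKM. The erythroid markers as a list went the other way, with sums of 844, 1929 and 1935 FPKM. A second pattern crossed both populations. Replicate 1 of LSK and replicate 1 of GMP, the libraries that Xist and Y-linked genes mark as female where the other 4 are male, were both low in immediate early genes and globins, so that the immediate early list summed to 3633, 9066 and 9167 FPKM in LSK and 1288, 2488 and 2506 FPKM in GMP. Sex and any other property of the replicate 1 libraries cannot be told apart in these 6 libraries. Results that rest on LSK replicate 1 are given below with and without it. In bulk libraries, fewer cells of a type and less RNA per cell cannot be told apart either, which holds for every value below.

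Sca1 and the Fc gamma receptors, the genes that separate the gates, followed the labels. Ly6a, which encodes Sca1, was at 196, 186 and 210.0 FPKM in LSK and 21.8, 21.3 and 22.4 FPKM in GMP. All GMP libraries were far below all LSK libraries (log2 fold change -3.12 ± 0.075, adjusted p = 6.93e-06). The Fc gamma receptor genes moved the other way. Fcgr3, which encodes CD16, was at 25.6, 6.69 and 11.5 FPKM in LSK and 264, 263 and 314 FPKM in GMP (log2 fold change 4.36 ± 0.41, adjusted p = 0.000191). Its neighbour in the gate, Fcgr2b, which encodes CD32, was at 21.2, 15.3 and 14.7 FPKM in LSK and 109, 119 and 125 FPKM in GMP (log2 fold change 2.73 ± 0.14, adjusted p = 2.63e-05). Kit and Cd34, by which GMP are also defined as positive, were lower in GMP but stayed well expressed: Kit was at 62.4 ± 12.5 FPKM in LSK and 34.4 ± 2.38 FPKM in GMP (-0.82 ± 0.15, adjusted p = 0.0033). Cd34 was at 376 ± 43.4 FPKM in LSK and 134 ± 28.3 FPKM in GMP (-1.502 ± 0.17, adjusted p = 0.000424). Flt3, the receptor that marks multipotent and lymphoid-primed progenitors within LSK, was at 144, 145 and 161 FPKM in LSK and 4.54, 12.8 and 10.5 FPKM in GMP, with no overlap (log2 fold change -3.97 ± 0.32, adjusted p = 0.000101). Slamf1, which encodes the stem cell marker CD150, was at 2.46 ± 0.649 FPKM in LSK and 0.149 ± 0.129 FPKM in GMP (log2 fold change -1.58 ± 0.16, adjusted p = 0.000237). Cd48 fell less (251 ± 6.43 FPKM in LSK and 198 ± 19.6 FPKM in GMP; log2 fold change -0.35 ± 0.086, adjusted p = 0.0131), and its call was lost in a fit over all 24 libraries (adjusted p = 0.137). Il7r, the receptor of lymphoid progenitors, was low in both (1.83 ± 0.927 FPKM in LSK and 0.555 ± 0.457 FPKM in GMP), and its call (adjusted p = 0.0397) was lost without any of 4 single libraries, at 0.0891 without LSK replicate 1, 0.077 without LSK replicate 3, 0.112 without GMP replicate 1 and 0.111 without GMP replicate 3. Ptprc, the pan-leukocyte CD45 gene, did not pass the test (log2 fold change -0.41 ± 0.18, adjusted p = 0.0925).

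Among the genes of the usual lineage cocktail for removing mature cells, T-cell genes were low. Cd3e, Cd3d, Cd5 and Cd8a were under 1 FPKM in all 6 libraries, and Ly6g is not among the symbols. Itgam, which encodes CD11b, rose from 8.595 ± 0.8497 to 25.2 ± 1.59 FPKM (log2 fold change 1.45 ± 0.11, adjusted p = 7.34e-05). Cd4 was at 4.47, 3.82 and 3.68 FPKM in LSK and 0.443, 0.634 and 0.329 FPKM in GMP (log2 fold change -1.77 ± 0.12, adjusted p = 5.76e-05).

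Genes of the primary granules rose nearly throughout. Of 25 listed genes 24 were tested, 21 rose and 1 fell, with a median log2 fold change of 2.39 against -0.10 for all genes. Elane, neutrophil elastase, was at 867, 175 and 200.5 FPKM in LSK and 11189, 11660.0 and 12215 FPKM in GMP. The 3 GMP libraries lay within a narrow band, whereas LSK replicate 1 was more than 4 times as high as the other LSK libraries (log2 fold change 5.22 ± 0.57, adjusted p = 0.000352). Without that library the log2 fold change was 5.96. Mpo, myeloperoxidase, was at 1243, 573 and 783 FPKM in LSK and 10157, 9239.9 and 9758 FPKM in GMP (log2 fold change 3.56 ± 0.26, adjusted p = 6.93e-05). Prtn3, proteinase 3, was at 511, 157 and 215 FPKM in LSK and 4752, 4816 and 4778 FPKM in GMP (log2 fold change 4.21 ± 0.39, adjusted p = 0.000188). Ctsg, cathepsin G, followed at 328, 113 and 133 FPKM in LSK and 2847, 2806 and 3079.6 FPKM in GMP (log2 fold change 4.08 ± 0.37, adjusted p = 0.000163). These 4 proteins are the main enzymes of the azurophil granule. Fcnb, a ficolin that binds microbial sugars and is stored in granules, was at 33.6, 15.5 and 13.3 FPKM in LSK and 463, 506 and 548 FPKM in GMP (log2 fold change 4.65 ± 0.31, adjusted p = 5.43e-05). Ms4a3, a membrane protein restricted to granulocyte-monocyte progenitors, was at 90.5, 17.9 and 26.2 FPKM in LSK and 1416, 1299 and 1437 FPKM in GMP (log2 fold change 5.26 ± 0.53, adjusted p = 0.000258). Srgn, the proteoglycan core that packs granule proteases, rose from 870.1 ± 159.7 to 1884 ± 162 FPKM (1.13 ± 0.15, adjusted p = 0.000758). Leaving out LSK replicate 1 left 21 of the 24 higher and none lower.

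Several of these proteases lie together. On mm10 chromosome 10, between 79781474 and 79955018, the annotation places Prss57, Palm, Misp, Ptbp1, Plppr3, Prtn3, Elane, Cfd, Med16, Kiss1r and Arid3a in that order. Of the 7 tested there, 5 rose and none fell. The 3 proteases rose by 2.39 ± 0.14 (Prss57, serine protease 57), 4.21 ± 0.39 and 5.22 ± 0.57. Palm and Arid3a, which are no granule proteases, were also higher: Palm, a membrane-associated phosphoprotein, at 13.7, 12.03 and 9.801 FPKM in LSK and 46.3, 25.2 and 31.05 FPKM in GMP (log2 fold change 1.42 ± 0.23, adjusted p = 0.00201). Arid3a, a DNA-binding protein, was at 4.06, 2.78 and 3.18 FPKM in LSK and 13.99, 8.99 and 8.57 FPKM in GMP (log2 fold change 1.39 ± 0.21, adjusted p = 0.00142). Ptbp1, the splicing regulator that lies between Palm and Prtn3, did not pass (161 ± 11.1 FPKM in LSK and 152 ± 14.7 FPKM in GMP; log2 fold change -0.085 ± 0.094, adjusted p = 0.477), and Med16, a Mediator subunit beyond Elane, did not pass (log2 fold change -0.24 ± 0.10, adjusted p = 0.0871). Cfd, complement factor D, lies next to Elane and was not tested, at 0.0937, 0.428 and 0.468 FPKM in LSK and 0.927, 0.861 and 0.409 FPKM in GMP. The rise was thus not shared by every gene of the interval.

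Prtn3 and Elane, the neighbours that rose most in this interval, are shown with the 250 bases before their RefSeq start (GRCm38.p6, plus strand, chr10:79879417-79879666 and chr10:79886062-79886311). Capitals mark GAGGAA, the core letters of PU.1 sites, which stand 95 bases before the Prtn3 start and 85 before that of Elane.
Prtn3: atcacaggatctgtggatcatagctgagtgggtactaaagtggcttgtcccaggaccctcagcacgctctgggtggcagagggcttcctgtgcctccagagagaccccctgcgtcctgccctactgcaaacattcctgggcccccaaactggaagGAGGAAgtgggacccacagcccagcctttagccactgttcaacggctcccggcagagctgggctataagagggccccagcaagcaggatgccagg
Elane: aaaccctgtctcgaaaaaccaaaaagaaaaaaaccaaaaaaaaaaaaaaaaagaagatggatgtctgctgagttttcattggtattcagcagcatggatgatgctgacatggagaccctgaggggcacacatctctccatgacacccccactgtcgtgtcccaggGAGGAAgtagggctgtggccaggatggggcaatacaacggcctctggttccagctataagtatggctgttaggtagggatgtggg
The letters GAGGAA were searched on both strands in the 250 bases before each start and occur in 26.1% of the 8405 tested genes with a RefSeq promoter entry. They occur in 8 of 19 matched primary granule genes (42.1%), in 45.7% of 46 genes that rose by at least 3 log2 units, and in 39.3% of 56 genes that fell by as much. Among 20 matched ER chaperone genes the share was 40.0%. The match is a description of letters in this window, and both ends of the fold change range stood above the share of all tested genes. The C/EBP letters TTNNGNAA were in 33.0% of tested genes, 52.6% of primary granule genes, 58.7% of the genes with a rise of 3 log2 units or more and 44.6% of those with a fall of 3 or more. CCGGAA, the core of many ETS factor sites, was rarer at both ends: 27.0% of tested genes had it, against 4.35% and 10.7%. The letters TGTGGT, the core of RUNX sites, were in 13.2% of tested genes and 47.4% of the 19 primary granule genes. They were in 19.6% of the genes with such a rise and 23.2% of those with such a fall. The MYB letters AACTG were in 38.2% of tested genes, 54.3% of the strong rises and 46.4% of the strong falls. For the GATA letters AGATAA these shares were 7.35%, 4.35% and 12.5%.

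Genes of secondary and tertiary granules, which are made after the promyelocyte, were also higher. Of 16 listed genes 14 were tested, 11 rose and none fell (median 2.41). S100a8, listed here although its calcium-binding protein makes up much of the neutrophil cytosol, was at 4761, 2173 and 2459 FPKM in LSK and 33670.0, 25033 and 23072 FPKM in GMP (log2 fold change 3.19 ± 0.30, adjusted p = 0.000201). Together with its partner S100a9 it took 5.66 to 7.71% of the FPKM sum in GMP and 0.693 to 1.42% in LSK. Camp, the cathelicidin precursor, was at 792, 428 and 345 FPKM in LSK and 5466, 3753 and 3911 FPKM in GMP (log2 fold change 3.14 ± 0.31, adjusted p = 0.000233). Ngp, neutrophilic granule protein, was at 786, 462 and 386 FPKM in LSK and 4589.6, 3301 and 2712 FPKM in GMP (log2 fold change 2.73 ± 0.29, adjusted p = 0.000343). GMP replicate 1 was the highest GMP library for all 3. Hp, haptoglobin, was at 51.6, 17.2 and 19.4 FPKM in LSK and 465, 442 and 464 FPKM in GMP (log2 fold change 4.09 ± 0.38, adjusted p = 0.000177). Chil3, a chitinase-like protein, was at 99.02 ± 31.6 FPKM in LSK and 924 ± 132 FPKM in GMP (log2 fold change 3.24 ± 0.22, adjusted p = 5.27e-05). Genes of the last maturation stages did not pass the test. Retnlg, a resistin-like protein of mature neutrophils, was at 194, 110.3 and 104 FPKM in LSK and 118, 139 and 132 FPKM in GMP (log2 fold change -0.014 ± 0.23, adjusted p = 0.965). Mmp8, neutrophil collagenase, was at 20.7, 11.4 and 9.82 FPKM in LSK and 15.2, 16.6 and 15.9 FPKM in GMP (log2 fold change 0.24 ± 0.25, adjusted p = 0.443). Mmp9, gelatinase, was at 9.82 ± 4.64 FPKM in LSK and 9.77 ± 1.97 FPKM in GMP (log2 fold change 0.063 ± 0.30, adjusted p = 0.878). The ranges of these 3 genes overlapped between the populations, while Camp, Ngp and S100a8 were separated by several fold. Without LSK replicate 1 Mmp8 passed the test (0.55, adjusted p = 0.0101) and Retnlg did not (adjusted p = 0.0554). The list of mature neutrophil markers, which S100a8 and S100a9 dominate, summed to 9657, 4757 and 4848 FPKM in LSK and 61670.0, 45328 and 41814 FPKM in GMP, and the part of mature cells in the granule values was not tested.

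**Figure D2:**
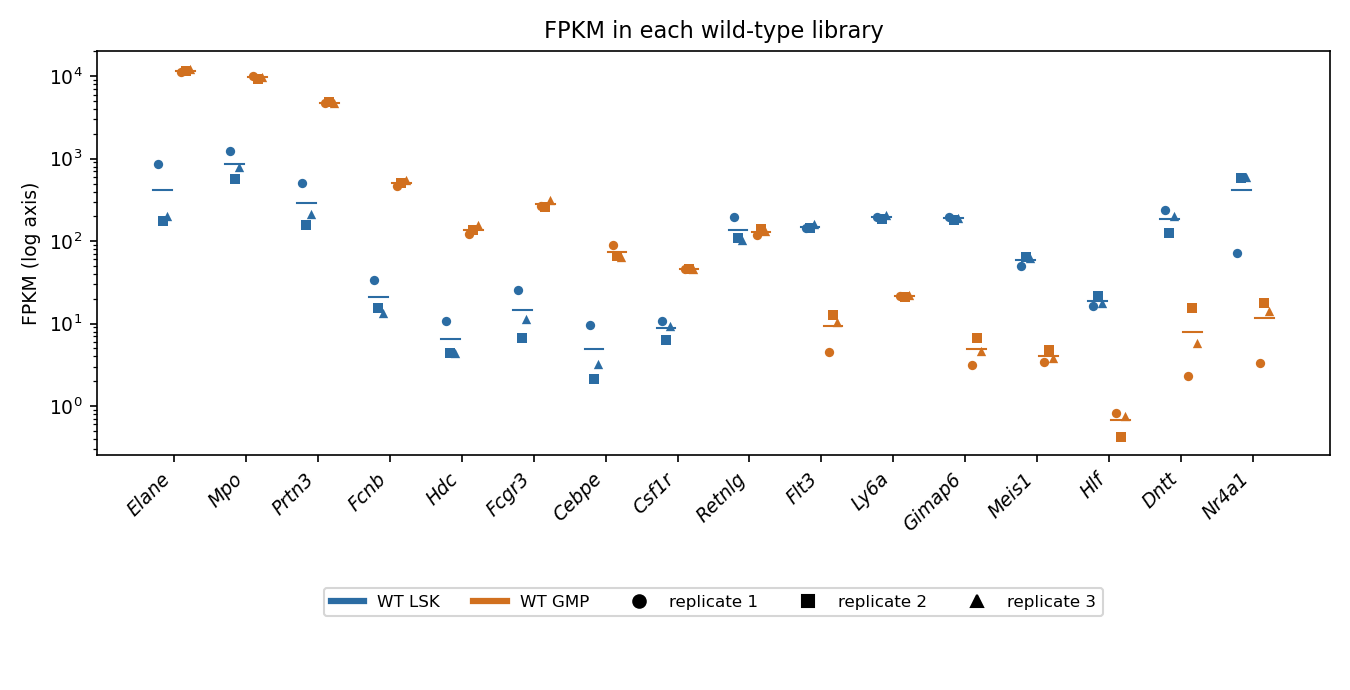
FPKM on a log axis in each of the 6 wild-type libraries for 16 genes, with a horizontal bar at the mean of 3 libraries and a marker shape for each replicate number. LSK replicate 1 (circles) is the highest LSK library for the granule genes and the lowest for Nr4a1, and Retnlg is the gene whose groups overlap.

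The phagocyte NADPH oxidase, the enzyme complex that makes superoxide for killing microbes, was higher in most of its parts. Of 9 genes tested, 8 rose and none fell (median 1.09). Cybb, the catalytic gp91phox subunit, was at 10.8, 4.999 and 6.102 FPKM in LSK and 57.4, 41.5 and 41.7 FPKM in GMP (log2 fold change 2.57 ± 0.26, adjusted p = 0.000271). Its membrane partner Cyba rose less, from a higher start (268 ± 31.8 FPKM in LSK and 470.0 ± 67.4 FPKM in GMP; log2 fold change 0.80 ± 0.13, adjusted p = 0.00203). Of the cytosolic subunits, Ncf1 (p47phox) rose by 2.01 ± 0.14 and Ncf4 (p40phox) by 1.22 ± 0.13. Hvcn1, the proton channel that balances charge during the burst, was at 5.85, 6.68 and 7.36 FPKM in LSK and 46.8, 62.8 and 69.3 FPKM in GMP, the steepest rise of the list (log2 fold change 2.98 ± 0.16, adjusted p = 2.92e-05). Rac2, the GTPase used by neutrophils, rose by 0.53 ± 0.067, whereas the ubiquitous Rac1 did not pass (23.6 ± 4.38 FPKM in LSK and 20.2 ± 7.59 FPKM in GMP; log2 fold change -0.25 ± 0.26, adjusted p = 0.438). Rac1 was called lower without GMP replicate 1 (-0.53, adjusted p = 0.0459).

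Of 29 tested sensors of microbes and Fc receptors, 20 rose and 3 fell (median 1.098). Trem3, an activating receptor of myeloid cells, was at 21.2, 8.67 and 6.99 FPKM in LSK and 214, 209 and 240.3 FPKM in GMP (log2 fold change 4.21 ± 0.35, adjusted p = 0.000123). Clec5a, a lectin that signals through the same adaptor family, was at 1.91, 0.975 and 1.44 FPKM in LSK and 28.9, 28.1 and 32.3 FPKM in GMP (log2 fold change 3.67 ± 0.16, adjusted p = 1.79e-05), and the adaptor itself, Tyrobp (DAP12), rose from 283 ± 30.5 to 1178 ± 56.8 FPKM (log2 fold change 2.06 ± 0.092, adjusted p = 1.87e-05). Cd14, the co-receptor that hands lipopolysaccharide to TLR4, was at 1.86, 1.099 and 2.12 FPKM in LSK and 19.7, 22.2 and 24.5 FPKM in GMP (log2 fold change 3.12 ± 0.17, adjusted p = 3.04e-05). Clec7a, the beta-glucan receptor Dectin-1, was at 3.01, 0.895 and 0.877 FPKM in LSK and 15.5, 13.5 and 15.3 FPKM in GMP (log2 fold change 2.699 ± 0.30, adjusted p = 0.000371). Ly96, which encodes MD-2, the subunit of TLR4 that binds lipopolysaccharide, fell: it was at 16.4, 20.3 and 17.96 FPKM in LSK and 8.02, 5.82 and 7.85 FPKM in GMP, with all GMP libraries below all LSK libraries (log2 fold change -1.23 ± 0.15, adjusted p = 0.000527). The shared adaptor Myd88 (35.7 ± 1.81 FPKM in LSK and 39.2 ± 1.64 FPKM in GMP; adjusted p = 0.204) and the kinase Irak4 (adjusted p = 0.25) did not pass. In the promoter windows of the 22 matched members, GAGGAA was found in 15 (68.2%), against 26.1% of tested genes, and TTNNGNAA in 15 as well.

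Eosinophil, basophil and mast cell genes rose together but less evenly. Of 12 listed genes 8 reached the filter and all of these rose, with a median of 3.91. Prg2, eosinophil major basic protein, was at 43.1, 28.4 and 0.291 FPKM in LSK and 1429.6, 661 and 604 FPKM in GMP, the largest log2 fold change of the comparison among genes of at least 5 FPKM that are not short loci (log2 fold change 6.13 ± 1.26, adjusted p = 0.00613). LSK replicate 3 was near 0 and GMP replicate 1 was more than 2 times as high as the other GMP libraries. Prg3, its homologue, was at 2.72, 1.99 and 0.32997 FPKM in LSK and 89.8, 46.2 and 39.7 FPKM in GMP (log2 fold change 4.51 ± 0.45, adjusted p = 0.000244). Epx, eosinophil peroxidase, was at 0.872, 1.31 and 0 FPKM in LSK and 78.9, 15.4 and 14.6 FPKM in GMP (log2 fold change 4.07 ± 0.66, adjusted p = 0.00211). Both repeated the excess in GMP replicate 1. Hdc, histidine decarboxylase, which makes histamine, was even across GMP libraries at 10.7, 4.37 and 4.36 FPKM in LSK and 121, 136 and 156 FPKM in GMP (log2 fold change 4.31 ± 0.31, adjusted p = 6.62e-05). Cpa3, a mast cell carboxypeptidase, was also even (16.6 ± 5.01 FPKM in LSK and 88.7 ± 2.21 FPKM in GMP; log2 fold change 2.39 ± 0.21, adjusted p = 0.000137). Fcer1a, Il5ra and Il1rl1, which mark committed cells of these lineages, stayed at or below 2.22 FPKM in every library and were not tested. Their means in LSK and GMP were 0.307 and 1.18 FPKM (Fcer1a), 0.398 and 0.459 (Il5ra) and 0.386 and 0.906 (Il1rl1). Mcpt8, Prss34 and Ms4a2 were among the 8 listed genes that rose. The part of committed cells in these values was not tested.

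Of the 10 monocyte and macrophage markers tested, 7 rose and none fell (median 2.05). F13a1, a coagulation factor subunit of monocytes, was at 9.23, 1.904 and 3.68 FPKM in LSK and 161, 119 and 107 FPKM in GMP (log2 fold change 4.63 ± 0.43, adjusted p = 0.00019). Ccr2, the chemokine receptor for leaving the marrow, was at 3.59, 1.41 and 2.09 FPKM in LSK and 25.3, 24.9 and 22.98 FPKM in GMP (log2 fold change 2.97 ± 0.23, adjusted p = 8.81e-05). Vcam1 was at 2.35, 0.765 and 1.11 FPKM in LSK and 9.48, 13.1 and 17.2 FPKM in GMP (log2 fold change 2.58 ± 0.29, adjusted p = 0.000406). Ly6c2 was at 278, 64.5 and 74.8 FPKM in LSK and 3768, 3609 and 3889.5 FPKM in GMP (log2 fold change 5.07 ± 0.51, adjusted p = 0.000258) and its near-identical neighbour Ly6c1 at 35.7 ± 26.7 FPKM in LSK and 739 ± 26.9 FPKM in GMP (4.57 ± 0.43). Reads shared by such copies can be split between them in counting, so the value of each alone is uncertain. The complement gene C1qa, a macrophage marker, did not pass (1.798 ± 1.08 FPKM in LSK and 0.841 ± 0.297 FPKM in GMP; adjusted p = 0.122). The Ms4a genes of chromosome 19 (mm10, 10962289 to 11640851) were tested for 8 members, of which 5 rose. Besides Ms4a3, Ms4a6c went from 42.7 ± 5.98 to 151 ± 7.15 FPKM (log2 fold change 1.801 ± 0.11, adjusted p = 4.04e-05) and Ms4a2, the beta chain of the high-affinity IgE receptor, from 0.536 ± 0.286 to 9.51 ± 2.91 FPKM (log2 fold change 2.76 ± 0.23, adjusted p = 0.00012). Ms4a6b did not pass (26.5 ± 1.77 FPKM in LSK and 28.3 ± 2.54 FPKM in GMP; adjusted p = 0.5), and neither did the B-cell member Ms4a1, CD20 (adjusted p = 0.367).

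Dmkn and Cldn15 were among the 12 genes with the highest fold changes without a place in the lists. Dmkn, dermokine, was at 9.74, 1.48 and 2.21 FPKM in LSK and 118, 97.2 and 128 FPKM in GMP (log2 fold change 4.700 ± 0.51, adjusted p = 0.000354). Cldn15, a tight junction claudin, was at 4.85, 1.201 and 1.53 FPKM in LSK and 59.9, 70.5 and 74.5 FPKM in GMP (log2 fold change 4.43 ± 0.35, adjusted p = 0.000101). In both, all GMP libraries were above all LSK libraries and LSK replicate 1 was the highest of its group.

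Transcription factors of the myeloid lineages changed in both directions. Of 23 tested, 10 rose and 6 fell (median 0.24). These are 43.5% and 26.1%, beside 20.6% and 32.3% of all genes tested. Within the C/EBP family 3 of 5 members rose. Cebpe, which drives the secondary granule programme, was at 9.52, 2.15 and 3.21 FPKM in LSK and 89.9, 65.2 and 64.7 FPKM in GMP (log2 fold change 3.82 ± 0.42, adjusted p = 0.000391). Cebpd was at 3.402, 2.28 and 1.49 FPKM in LSK and 26.7, 17.7 and 28.1 FPKM in GMP (log2 fold change 2.905 ± 0.25, adjusted p = 0.000142). Cebpa, the factor required to form GMP, was low in FPKM and rose from 2.13 ± 0.713 to 6.603 ± 2.05 (log2 fold change 1.27 ± 0.25, adjusted p = 0.00486). Cebpb (log2 fold change 0.064 ± 0.26, adjusted p = 0.857) and Cebpg (log2 fold change 0.10 ± 0.13, adjusted p = 0.527) did not pass. In GMP, Cebpe stood above Cebpd in every library, and both stood above the other 3 members.

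Spi1, PU.1, was high in both and rose from 99.01 ± 9.57 to 151 ± 24.9 FPKM (log2 fold change 0.60 ± 0.13, adjusted p = 0.00795). Irf8, which directs monocyte and dendritic fate, was at 40.6, 23.8 and 30.97 FPKM in LSK and 128, 106 and 101 FPKM in GMP (log2 fold change 1.81 ± 0.19, adjusted p = 0.000322). Gfi1, the repressor that opposes it in favour of neutrophils, was at 4.14, 3.84 and 2.65 FPKM in LSK and 10.3, 5.81 and 7.02 FPKM in GMP (log2 fold change 0.92 ± 0.22, adjusted p = 0.0119). Myb, which sustains progenitor growth, rose to 127 ± 2.54 from 66.4 ± 7.41 FPKM (log2 fold change 0.93 ± 0.092, adjusted p = 0.000242), and Zeb2 rose by 1.23 ± 0.18 (adjusted p = 0.00148). The retinoid receptors fell: Rara was at 7.24, 10.3 and 8.98 FPKM in LSK and 1.65, 1.94 and 1.44 FPKM in GMP (log2 fold change -1.87 ± 0.15, adjusted p = 0.000103). Its partner Rxra was at 2.12 ± 0.267 FPKM in LSK and 0.241 ± 0.0463 FPKM in GMP (log2 fold change -1.33 ± 0.10, adjusted p = 8.34e-05). Runx1, required to make the first blood stem cells and expressed through the myeloid lineage, fell by a smaller step (12.9 ± 0.731 FPKM in LSK and 8.66 ± 1.07 FPKM in GMP; log2 fold change -0.53 ± 0.12, adjusted p = 0.0078), and its partner Cbfb did not pass (adjusted p = 0.115). The calls of Klf4 and Irf5 turned on single libraries. Klf4, a monocyte factor that is also an immediate early gene, was at 4.96, 21.5 and 16.2 FPKM in LSK and 3.53, 4.03 and 3.26 FPKM in GMP, and its call (adjusted p = 0.028) was lost without LSK replicate 2 (adjusted p = 0.0783), LSK replicate 3 (0.0859) or any GMP library (0.059 to 0.0814). Irf5 (-0.44, adjusted p = 0.0285) was lost without LSK replicate 1 (0.0658), LSK replicate 3 (0.0762), GMP replicate 2 (0.0977) or GMP replicate 3 (0.0759).

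The stem and progenitor factors fell almost without exception: 32 of 33 tested were lower in GMP and none was higher, with a median of -1.62. Hlf, a PAR bZIP factor that marks long-term stem cells, was at 16.4, 21.5 and 17.7 FPKM in LSK and 0.816, 0.426 and 0.763 FPKM in GMP (log2 fold change -3.55 ± 0.15, adjusted p = 1.74e-05). Meis1, the cofactor of HOX proteins, was at 49.7, 63.96 and 63.01 FPKM in LSK and 3.37, 4.77 and 3.86 FPKM in GMP (log2 fold change -3.58 ± 0.15, adjusted p = 1.58e-05). Mecom was at 3.01, 5.17 and 5.65 FPKM in LSK and 0.06801, 0.151 and 0.0116 FPKM in GMP (log2 fold change -2.35 ± 0.20, adjusted p = 0.00012). Mycn, the MYC paralogue of stem cells, was at 19.5, 20.4 and 21.5 FPKM in LSK and 0.2804, 0.931 and 0.699 FPKM in GMP (log2 fold change -3.73 ± 0.17, adjusted p = 1.87e-05). GMP libraries were below 1 FPKM for Hlf, Mecom and Mycn, which reached the filter through LSK alone. Msi2, an RNA-binding protein listed with these factors, fell with a log2 fold change of -2.68 ± 0.14 (adjusted p = 2.6e-05).

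The factors shared with erythroid and megakaryocytic cells fell too, by less: Gata2 was at 28.4, 29.6 and 29.7 FPKM in LSK and 8.14, 7.25 and 6.99 FPKM in GMP (log2 fold change -1.84 ± 0.094, adjusted p = 2.53e-05), Gata1 at 11.2 ± 4.25 FPKM in LSK and 4.97 ± 0.804 FPKM in GMP (log2 fold change -0.99 ± 0.24, adjusted p = 0.0129), Gfi1b at 42.8, 18.03 and 16.6 FPKM in LSK and 4.64, 4.603 and 4.26 FPKM in GMP (log2 fold change -2.16 ± 0.33, adjusted p = 0.00171). Lmo2, the bridging factor of the TAL1 complex, was at 211 ± 32.7 FPKM in LSK and 90.7 ± 5.602 FPKM in GMP (log2 fold change -1.197 ± 0.12, adjusted p = 0.000285). For Gata1 and Gfi1b, LSK replicate 1 was the high library, and without it the changes were -0.72 (adjusted p = 0.0121) and -1.74 (adjusted p = 0.000152). Fli1, an ETS factor of the same network, was the exception, at 38.1, 33.3 and 40.3 FPKM in LSK and 37.7, 41.5 and 36.9 FPKM in GMP (log2 fold change 0.055 ± 0.099, adjusted p = 0.664), whereas its close relative Erg fell from 8.05 ± 0.855 to 2.05 ± 0.699 FPKM (log2 fold change -1.59 ± 0.19, adjusted p = 0.000521).

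The HOXA cluster (mm10, chromosome 6, 52155367 to 52260880) holds the 12 genes of the list, of which 11 are among the symbols. Of these, 5 reached the filter, and these 5 all fell. Hoxa9, the most abundant, was at 28.3, 41.8 and 41.4 FPKM in LSK and 4.098, 6.08 and 4.21 FPKM in GMP (log2 fold change -2.71 ± 0.20, adjusted p = 7.34e-05). Hoxa10 was at 7.65, 8.74 and 7.92 FPKM in LSK and 0.125, 0.236 and 0.101 FPKM in GMP (log2 fold change -2.98 ± 0.11, adjusted p = 1.52e-05). Hoxa7 was at 14.03, 17.6 and 13.9 FPKM in LSK and 3.16, 3.17 and 3.68 FPKM in GMP (log2 fold change -1.89 ± 0.13, adjusted p = 5.8e-05). Hoxa5 (-1.87, adjusted p = 5.09e-05) and Hoxa3 (-1.39, adjusted p = 3.32e-05) had lower levels and smaller changes on this scale. Among the adjacent genes Hoxa9 and Hoxa7 remained measurable in GMP, at 4.795 and 3.34 FPKM, while Hoxa10 was at 0.154. Hoxa10 reached the filter through LSK alone, which favours a fall. No HOXB gene reached the filter. The HOXB list summed to 2.28, 1.64 and 1.96 FPKM in LSK and 0.711, 0.816 and 0.5097 FPKM in GMP, and its highest member, Hoxb4, was at 0.932, 0.759 and 0.574 FPKM in LSK and 0.4905, 0.527 and 0.4304 FPKM in GMP.

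Of 35 surface and other identity genes of stem cells that were tested, 31 fell and 1 rose (median -2.32). Procr, the protein C receptor EPCR used to purify stem cells, was at 16.9, 30.5 and 26.3 FPKM in LSK and 0.679, 0.503 and 0.504 FPKM in GMP (log2 fold change -3.99 ± 0.21, adjusted p = 2.68e-05). Pdzk1ip1, whose promoter serves in stem cell reporter mice, was at 45.7, 49.2 and 44.4 FPKM in LSK and 1.11, 1.73 and 0.736 FPKM in GMP (log2 fold change -4.46 ± 0.17, adjusted p = 1.57e-05). Ltb, lymphotoxin beta, was at 67.3, 80.3 and 66.6 FPKM in LSK and 3.31, 3.63 and 3.196 FPKM in GMP (log2 fold change -4.04 ± 0.11, adjusted p = 7.37e-06). Each of these 3 genes was lower in every GMP library than in any LSK library by a wide margin. Emcn, endomucin, was at 14.5, 22.8 and 21.2 FPKM in LSK and 0.20003, 0.728 and 0.339 FPKM in GMP (log2 fold change -3.84 ± 0.21, adjusted p = 2.98e-05). Esam, a junction protein of stem cells, was at 17.4, 15.9 and 18.4 FPKM in LSK and 0.166, 0.178 and 0.159 FPKM in GMP (log2 fold change -3.96 ± 0.10, adjusted p = 7.37e-06). Procr, Emcn and Esam were under 1 FPKM in every GMP library and reached the filter through LSK alone, which favours a fall. Emcn is also an endothelial marker. Cdh5 and Kdr, which define endothelium, were under 1 FPKM in all 6 libraries, and the 11 endothelial and stromal markers summed to 125, 48.6 and 122 FPKM in LSK and 57.9, 86.05 and 69.5 FPKM in GMP. The part of endothelial cells in the result was not tested. Cd9 was the member that rose (66.1 ± 3.33 FPKM in LSK and 89.5 ± 3.93 FPKM in GMP; log2 fold change 0.43 ± 0.074, adjusted p = 0.00274), a call lost in the fit over all 24 libraries (adjusted p = 0.0968). Car2, carbonic anhydrase 2, which red cell precursors also express, fell from 421 ± 25.3 to 47.5 ± 5.62 FPKM (log2 fold change -3.13 ± 0.10, adjusted p = 1.52e-05).

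Among the 12 genes with the deepest falls were several without a place in these lists. Gm5111, a gene of no assigned function, was at 54.5, 59.1 and 60.2 FPKM in LSK and 0.3201, 0.4297 and 0.258 FPKM in GMP (log2 fold change -5.46 ± 0.11, adjusted p = 4.04e-06). Wfdc17, a small secreted protein with a whey acidic protein domain, was at 313, 287 and 313 FPKM in LSK and 8.21, 11.99 and 8.83 FPKM in GMP (log2 fold change -4.85 ± 0.14, adjusted p = 8.6e-06). Myl10, a myosin light chain, was at 73.1, 45.5 and 52.7 FPKM in LSK and 0.677, 2.02 and 0.582 FPKM in GMP (log2 fold change -4.83 ± 0.29, adjusted p = 3.67e-05). Pglyrp2, an amidase that cleaves bacterial peptidoglycan, was at 27.9, 37.996 and 37.3 FPKM in LSK and 0.397, 0.654 and 0.649 FPKM in GMP (log2 fold change -4.49 ± 0.15, adjusted p = 1.52e-05). Gm5111 and Pglyrp2 were under 1 FPKM in every GMP library and reached the filter through LSK alone, which favours a fall. Tsc22d1, a transcriptional regulator induced by TGF-beta, was at 160.0, 427 and 398 FPKM in LSK and 6.56, 14.5 and 9.35 FPKM in GMP, with LSK replicate 1 the lowest of its group and still far above GMP (log2 fold change -4.82 ± 0.42, adjusted p = 0.00014). Ctla2a, a protease inhibitor, was at 309, 880.1 and 739.9 FPKM in LSK and 5.197, 26.8 and 17.003 FPKM in GMP (log2 fold change -5.33 ± 0.61, adjusted p = 0.000441) and its close copy Ctla2b at 159 ± 62.7 FPKM in LSK and 6.11 ± 2.48 FPKM in GMP (-4.47 ± 0.37); the division of reads between these copies is uncertain.

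All 8 GIMAP genes, GTPases of lymphocyte survival that lie side by side on mm10 chromosome 6 (48647186 to 48770851), fell in GMP (median -2.95). Gimap6 was the most abundant, at 196, 183 and 191 FPKM in LSK and 3.18, 6.71 and 4.65 FPKM in GMP (log2 fold change -5.07 ± 0.21, adjusted p = 1.57e-05). Gimap1 was at 70.5, 69.2 and 58.5 FPKM in LSK and 2.03, 4.77 and 3.06 FPKM in GMP (log2 fold change -4.01 ± 0.23, adjusted p = 3.25e-05), Gimap5 at 21.8, 24.3 and 20.9 FPKM in LSK and 0.359, 1.13 and 0.443 FPKM in GMP (log2 fold change -3.85 ± 0.19, adjusted p = 2.29e-05). Gimap7 was at 11.4 ± 2.37 FPKM in LSK and 0.204 ± 0.205 FPKM in GMP (-3.36 ± 0.19). The smallest falls were those of Gimap9 (-1.83 ± 0.15) and Gimap8 (-1.905 ± 0.16). Gimap9 remained at 5.68, 6.93 and 5.08 FPKM in GMP, the highest level of the family there. The order of abundance in LSK, from Gimap6 over Gimap1 to Gimap9, was therefore not kept in GMP.

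Lymphoid priming genes, transcribed at low level in multipotent progenitors before lymphoid commitment, were mostly lower: 18 of 27 tested fell and 3 rose (median -1.099). In the fit over all 24 libraries 18 fell and none rose. Dntt, terminal transferase, was at 236, 125 and 199 FPKM in LSK and 2.34, 15.3 and 5.79 FPKM in GMP, with GMP replicate 2 the highest GMP library (log2 fold change -4.66 ± 0.55, adjusted p = 0.000512). Lck, the T-cell kinase, was at 28.7, 36.9 and 42.5 FPKM in LSK and 1.49, 2.78 and 1.44 FPKM in GMP (log2 fold change -3.69 ± 0.22, adjusted p = 3.67e-05). Lck is also a T-cell marker. Of 10 T and NK cell markers 3 were tested and 3 fell, and Cd3e, Cd3d and Cd3g were under 1 FPKM in every library. The markers summed to 35.5, 41.3 and 48.5 FPKM in LSK and 2.603, 5.18 and 3.55 FPKM in GMP, and the part of such cells in the result was not tested. Satb1, a chromatin organizer of lymphoid-primed cells, fell from 13.2 ± 1.07 to 2.35 ± 0.263 FPKM (log2 fold change -2.08 ± 0.12, adjusted p = 3.05e-05), and Tox from 5.03 ± 1.49 to 0.0613 ± 0.0546 FPKM (log2 fold change -2.48 ± 0.19, adjusted p = 9.15e-05). Of the members that rose, Cd52 (0.84) and Cd53 (0.37) encode surface proteins found on most leukocytes, and their calls were lost in the fit over all 24 libraries (adjusted p = 0.0949 and 0.124). Cd53 was also lost without GMP replicate 2 (adjusted p = 0.0644) or GMP replicate 3 (0.0526). Of the 8 B-cell markers tested none passed in limma's test, and 0 had an unadjusted p under 0.05. Their summed level was 310.3, 156 and 169 FPKM in LSK and 85.6, 284 and 162 FPKM in GMP, so the populations overlapped, with LSK replicate 1 and GMP replicate 2 the highest libraries. Igll1, the surrogate light chain, was at 69.9, 22.5 and 24.6 FPKM in LSK and 7.76, 66.7 and 25.5 FPKM in GMP. Ly6d, an early B-lineage marker, was at 63.03, 30.6 and 28.5 FPKM in LSK and 9.41, 39.5 and 22.4 FPKM in GMP and did not pass (adjusted p = 0.2). The part of B-lineage cells in the lymphoid values was not tested.

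Antigen presentation genes were lower. Of 19 MHC class I genes 15 fell and 1 rose (median -0.76). H2-T23, which encodes Qa-1, was at 132, 153 and 114 FPKM in LSK and 38.6, 36.8 and 24.9 FPKM in GMP (log2 fold change -1.97 ± 0.18, adjusted p = 0.000192). H2-Q4 was at 32.97, 35.6 and 33.05 FPKM in LSK and 11.8, 11.7 and 14.7 FPKM in GMP (log2 fold change -1.35 ± 0.11, adjusted p = 0.000112); H2-Q and H2-T genes are similar in sequence, so the share of each is uncertain. Of 10 class II genes 6 fell, with 3 in the fit over all 24 libraries and 4 without LSK replicate 1, without GMP replicate 3 or with no filter. H2-Ob, part of the regulator DO, was at 23.9, 30.6 and 33.1 FPKM in LSK and 2.03, 4.82 and 3.09 FPKM in GMP (log2 fold change -2.85 ± 0.25, adjusted p = 0.000141). Its partner H2-Oa was at 24.6 ± 3.605 FPKM in LSK and 7.405 ± 1.75 FPKM in GMP (log2 fold change -1.62 ± 0.18, adjusted p = 0.000403). The invariant chain Cd74 was at 152, 85.8 and 85.97 FPKM in LSK and 26.04, 67.2 and 39.6 FPKM in GMP, highest in LSK replicate 1. Its call (adjusted p = 0.0206) was lost without that library (adjusted p = 0.0534) and without GMP replicate 3 (0.0624). The regulator H2-DMb1 did not pass (27.2 ± 2.48 FPKM in LSK and 29.4 ± 2.47 FPKM in GMP; adjusted p = 0.392).

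Cytokine receptor genes changed in both directions. Of 41 tested, 8 rose and 22 fell (median -0.54). These are 19.5% and 53.7%, beside 20.6% and 32.3% of all genes tested. Csf1r, the receptor of the macrophage growth factor M-CSF, was at 10.7, 6.32 and 9.29 FPKM in LSK and 46.3, 46.5 and 46.4 FPKM in GMP, with GMP libraries within 1 FPKM of each other (log2 fold change 2.31 ± 0.17, adjusted p = 7.94e-05). Csf2ra, the specific chain of the GM-CSF receptor, was at 20.6, 18.9 and 20.2 FPKM in LSK and 73.5, 54.6 and 65.5 FPKM in GMP (log2 fold change 1.64 ± 0.12, adjusted p = 7.23e-05). The chain that GM-CSF shares with interleukin 3, Csf2rb, rose from 14.1 ± 0.786 to 22.4 ± 3.24 FPKM (log2 fold change 0.63 ± 0.12, adjusted p = 0.00433). Its mouse-specific copy Csf2rb2 did not pass (adjusted p = 0.917). Csf3r, the receptor for G-CSF, was already present in LSK and did not pass (43.7 ± 3.904 FPKM in LSK and 48.2 ± 4.33 FPKM in GMP; log2 fold change 0.14 ± 0.10, adjusted p = 0.301), and Il3ra did not either (adjusted p = 0.89).

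Ifngr1 was at 74.3, 54.8 and 63.1 FPKM in LSK and 239.5, 222 and 254 FPKM in GMP (log2 fold change 1.89 ± 0.12, adjusted p = 4.54e-05). Its partner Ifngr2 was at 10.8 ± 0.672 FPKM in LSK and 21.7 ± 1.63 FPKM in GMP (log2 fold change 0.94 ± 0.099, adjusted p = 0.000322), while the type I interferon receptor chains Ifnar1 (adjusted p = 0.271) and Ifnar2 (adjusted p = 0.652) did not pass. Il6ra rose by 0.88 ± 0.16 (adjusted p = 0.00329) and Il1rap, a shared chain of interleukin 1 family receptors, by 0.99 ± 0.20 (adjusted p = 0.00566). The ligand-binding chain Il1r1 went down, at 11.9, 10.2 and 13.8 FPKM in LSK and 0.6096, 1.29 and 0.876 FPKM in GMP (log2 fold change -2.76 ± 0.17, adjusted p = 4.23e-05). On the falling side besides Flt3 and Kit stood Il27ra at 10.7, 13.4 and 16.3 FPKM in LSK and 0.696, 2.27 and 1.62 FPKM in GMP (log2 fold change -2.55 ± 0.26, adjusted p = 0.00029). Il2rg, the common gamma chain, was at 135, 154 and 145 FPKM in LSK and 35.8, 39.8 and 37.8 FPKM in GMP (log2 fold change -1.91 ± 0.082, adjusted p = 1.73e-05). Tgfbr2, needed for all TGF-beta signalling, fell from 9.81 ± 0.743 to 3.16 ± 0.965 FPKM (log2 fold change -1.403 ± 0.19, adjusted p = 0.000924), whereas Tgfbr1 did not pass (adjusted p = 0.465).

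Downstream of these receptors, 14 of 29 JAK-STAT genes fell and 2 rose (median -0.44). The falling genes included feedback inhibitors that STAT5 induces. Socs2 was at 12.96, 18.4 and 15.5 FPKM in LSK and 0.197, 0.976 and 0.705 FPKM in GMP (log2 fold change -3.37 ± 0.22, adjusted p = 4.71e-05). Cish was at 11.3, 18.9 and 13.8 FPKM in LSK and 1.23, 2.18 and 1.42 FPKM in GMP (log2 fold change -2.57 ± 0.22, adjusted p = 0.000122). Pim2, a survival kinase, was at 17.7, 17.3 and 19.7 FPKM in LSK and 3.09, 3.08 and 2.98 FPKM in GMP (log2 fold change -2.25 ± 0.10, adjusted p = 1.87e-05). Socs3 was at 14.3, 45.2 and 45.4 FPKM in LSK and 1.98, 4.88 and 5.28 FPKM in GMP, with LSK replicate 1 the low library of its group (log2 fold change -2.74 ± 0.49, adjusted p = 0.00329). Of the members that rose, Cbl was called at 0.75 ± 0.23 (adjusted p = 0.0305) and Socs6 at 0.36 ± 0.11 (adjusted p = 0.0283). The call of Cbl was lost without any single library other than LSK replicate 3, at adjusted p of 0.0526 to 0.0949. That of Socs6 was lost without replicate 1 or 2 of either population, at 0.0716 to 0.0949. Without LSK replicate 1 none of the list rose. The phosphatase Ptpn6 (SHP-1) did not pass (adjusted p = 0.15).

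Adhesion and niche receptors changed in both directions in similar numbers: 14 rose and 17 fell of 42 tested (median 0.021). These are 33.3% and 40.5%, beside 20.6% and 32.3% of all genes tested. The beta-2 integrin chain Itgb2 rose from 21.3 ± 2.505 to 52.1 ± 1.17 FPKM (log2 fold change 1.26 ± 0.10, adjusted p = 0.000105) together with its partner Itgam. Cd63, a tetraspanin of granule membranes, was at 114, 118 and 117 FPKM in LSK and 487, 499.5 and 579 FPKM in GMP (log2 fold change 2.15 ± 0.082, adjusted p = 1.57e-05). S1pr1, the receptor by which cells leave tissue along sphingosine phosphate, was at 5.99, 11.3 and 11.8 FPKM in LSK and 0.399, 1.47 and 0.6502 FPKM in GMP (log2 fold change -2.53 ± 0.30, adjusted p = 0.000518). Eng, endoglin, was at 32.8, 42.9 and 42.7 FPKM in LSK and 6.97, 6.602 and 6.31 FPKM in GMP (log2 fold change -2.398 ± 0.13, adjusted p = 2.67e-05), and Icam1 fell from 24.97 ± 2.26 to 5.34 ± 0.698 FPKM (log2 fold change -2.04 ± 0.12, adjusted p = 3.92e-05). Selplg, the selectin ligand PSGL-1, did not pass (128 ± 9.97 FPKM in LSK and 142 ± 5.76 FPKM in GMP; adjusted p = 0.17).

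**Figure D3:**
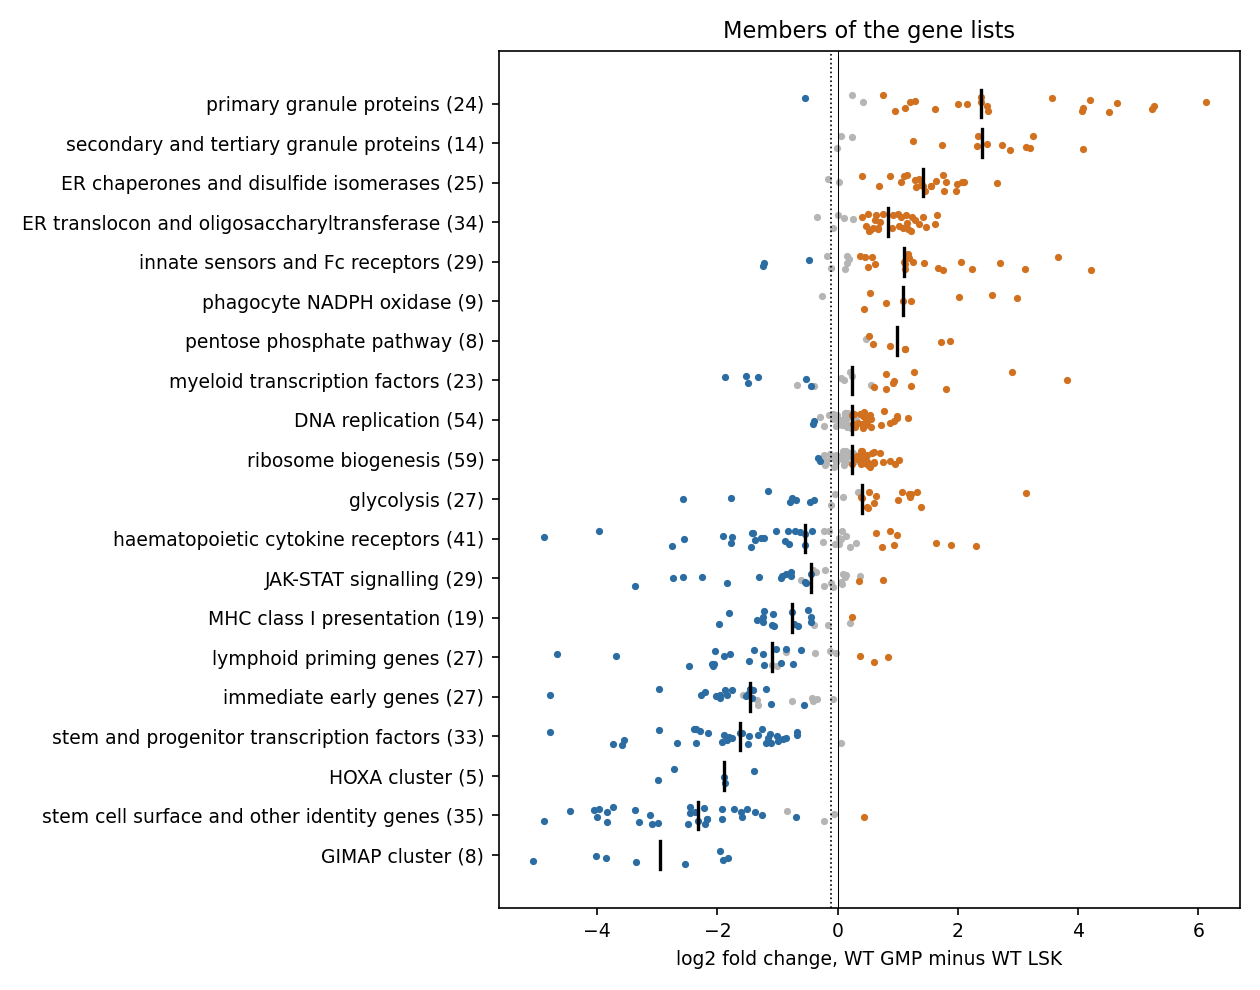
Log2 fold changes, GMP minus LSK, of the tested members of 20 gene lists (number tested in brackets), orange for called higher, blue for called lower, grey for not called. The black bar is the list median and the dotted line the median of all 11307 genes (-0.10): granule and ER lists lie to the right, and stem cell and GIMAP lists to the left.

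Among cell cycle genes the E cyclins rose while cyclins D1 and D2 fell. Of 25 tested G1 regulators, 5 rose and 6 fell (median -0.045). These shares, 20% and 24%, lie near or below the 20.6% and 32.3% of all genes tested. Ccnd1 was at 6.86, 11.4 and 5.62 FPKM in LSK and 1.09, 1.22 and 1.21 FPKM in GMP (log2 fold change -1.99 ± 0.23, adjusted p = 0.000447). Ccnd2 was at 51.6, 57.2 and 54.5 FPKM in LSK and 28.3, 25.3 and 19.5 FPKM in GMP (log2 fold change -1.14 ± 0.14, adjusted p = 0.000563). Ccnd3, the most abundant D cyclin in both populations, did not pass (112 ± 14.1 FPKM in LSK and 132 ± 6.68 FPKM in GMP; log2 fold change 0.24 ± 0.10, adjusted p = 0.0936), although it was called higher without LSK replicate 1 (0.32, adjusted p = 0.0354). The E cyclins, which fire S phase, rose: Ccne1 was at 5.896, 4.45 and 2.11 FPKM in LSK and 11.8, 9.39 and 10.1 FPKM in GMP (log2 fold change 1.22 ± 0.28, adjusted p = 0.0103). Ccne2 was at 9.15, 6.87 and 9.07 FPKM in LSK and 18.999, 19.8 and 18.7 FPKM in GMP (log2 fold change 1.12 ± 0.13, adjusted p = 0.000424). Tfdp1, the partner of E2F factors, rose from 54.6 ± 4.06 to 119 ± 7.89 FPKM (log2 fold change 1.11 ± 0.087, adjusted p = 9.49e-05). Cdkn1b, the inhibitor p27, fell from 6.05 ± 1.28 to 2.37 ± 0.0854 FPKM (log2 fold change -1.05 ± 0.15, adjusted p = 0.00133). Cdkn1a, p21, was at 29.4, 167 and 163 FPKM in LSK and 12.9, 29.1 and 26.8 FPKM in GMP, so that replicate 1 was low in both populations. Its call (adjusted p = 0.0394) was lost without any single library other than LSK replicate 1, at 0.062 to 0.121.

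Of 54 DNA replication genes, 26 rose and 2 fell (median 0.24), with changes below 1.2 log2 units. Rrm2, the regulated subunit of ribonucleotide reductase, was at 79.01, 59.2 and 75.1 FPKM in LSK and 176, 156 and 151 FPKM in GMP (log2 fold change 1.17 ± 0.12, adjusted p = 0.000315). Cdc45, a part of the replicative helicase, was at 41.03, 39.3 and 41.4 FPKM in LSK and 71.5, 82.4 and 90.9 FPKM in GMP (log2 fold change 0.98 ± 0.10, adjusted p = 0.00027). Cdc6 rose by 0.94 ± 0.16 (adjusted p = 0.00282). Pcna, the sliding clamp, did not pass (307 ± 13.4 FPKM in LSK and 309.9 ± 14.7 FPKM in GMP; log2 fold change 0.015 ± 0.069, adjusted p = 0.873). The members that fell were the DNA ligase Lig1 (-0.40 ± 0.088, adjusted p = 0.00777) and the chromatin assembly subunit Chaf1b (-0.40 ± 0.071, adjusted p = 0.00337). Of 56 mitotic genes 14 rose and 3 fell (median 0.26), or 25% and 5.36%, beside 20.6% and 32.3% of all genes tested. Ccna2, the cyclin of S phase and mitotic entry, rose from 38.3 ± 6.81 to 71.9 ± 5.598 FPKM (log2 fold change 0.90 ± 0.13, adjusted p = 0.00136), while Cdc25b, a phosphatase of mitotic entry, fell from 16.03 ± 2.06 to 6.03 ± 1.04 FPKM (log2 fold change -1.28 ± 0.15, adjusted p = 0.00049). Ccnb2 did not pass (adjusted p = 0.463). Median-ratio scaling called 23 mitotic genes higher and 3 lower. These counts moved with single libraries. Without GMP replicate 2 the mitotic genes gave 8 higher and 1 lower, without GMP replicate 3 they gave 10 and 1, and without LSK replicate 3 they gave 26 and 2. The replication genes gave 16 higher and 2 lower without GMP replicate 3.

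Ribosome biogenesis genes rose by small steps: 26 of 59 were higher and 2 lower (median 0.24), with 17 and 1 without GMP replicate 2. Heatr1, a factor of pre-ribosomal RNA transcription, was at 8.85, 8.32 and 10.6 FPKM in LSK and 16.1, 21.2 and 19.5 FPKM in GMP (log2 fold change 0.96 ± 0.14, adjusted p = 0.0013), and Ltv1, an assembly factor of the small subunit, rose from 40.2 ± 2.22 to 68.5 ± 4.15 FPKM (log2 fold change 0.76 ± 0.082, adjusted p = 0.000361). The abundant nucleolar protein Npm1 did not pass (467 ± 23.2 FPKM in LSK and 517 ± 43.05 FPKM in GMP; adjusted p = 0.182). Of 23 cytosolic tRNA synthetases 12 rose and 2 fell (median 0.27). Nars went from 57.9 ± 6.02 to 119 ± 8.62 FPKM (log2 fold change 1.02 ± 0.10, adjusted p = 0.000226), and Gars rose by 0.85 ± 0.12. Wars (-0.56 ± 0.099) and Vars (-0.55 ± 0.11) fell. In the MYC network, whose members drive growth, Myc itself fell from 126 ± 16.1 to 84.7 ± 8.11 FPKM (log2 fold change -0.56 ± 0.12, adjusted p = 0.00607). The antagonist Mnt fell as well (log2 fold change -0.75 ± 0.12, adjusted p = 0.00234), and Mlx, the partner of the glucose-sensing MondoA, was the member that rose, at 23.98, 23.2 and 23.9 FPKM in LSK and 56.6, 56.7 and 60.6 FPKM in GMP (log2 fold change 1.26 ± 0.073, adjusted p = 3.36e-05). Max was at 26.7, 25.5 and 31.1 FPKM in LSK and 21.97, 13.3 and 11.6 FPKM in GMP, and its call (adjusted p = 0.0182) was lost without LSK replicate 3 (adjusted p = 0.0577), GMP replicate 2 (0.0603) or GMP replicate 3 (0.0566).

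Genes of the folding machinery of the ER rose nearly throughout. Of 25 chaperones and disulfide isomerases, 23 rose and none fell (median 1.42). Of 34 genes of the translocon and of N-glycosylation, 29 rose and none fell (median 0.83). Hspa5, the chaperone BiP, was at 269, 334 and 387 FPKM in LSK and 681, 873 and 892 FPKM in GMP (log2 fold change 1.31 ± 0.16, adjusted p = 0.000591). Hsp90b1, the chaperone GRP94, was at 118, 91.5 and 115 FPKM in LSK and 400.1, 499.7 and 472 FPKM in GMP (log2 fold change 2.07 ± 0.13, adjusted p = 4.09e-05). Calr, calreticulin, which folds glycoproteins, was at 483, 437 and 456 FPKM in LSK and 1319, 1411 and 1332 FPKM in GMP (log2 fold change 1.56 ± 0.068, adjusted p = 1.74e-05). The groups did not overlap for any of the 3. Pdia4, a disulfide isomerase, was at 51.1, 38.2 and 52.7 FPKM in LSK and 158, 208 and 203 FPKM in GMP (log2 fold change 1.98 ± 0.16, adjusted p = 9.93e-05), and Ero1l, the oxidase that recharges these isomerases, was at 6.299, 4.49 and 5.603 FPKM in LSK and 39.7, 38.5 and 40.3 FPKM in GMP, the steepest rise of the list (log2 fold change 2.66 ± 0.12, adjusted p = 2e-05). Fkbp11, a proline isomerase, was at 17.3, 11.3 and 11.4 FPKM in LSK and 65.9, 57.5 and 55.4 FPKM in GMP (log2 fold change 2.103 ± 0.17, adjusted p = 0.000105). Cnpy2 and Sil1 did not pass (adjusted p = 0.737 and 0.265). In the translocon, Sec61b was at 305, 268 and 287 FPKM in LSK and 803, 744 and 761 FPKM in GMP (log2 fold change 1.42 ± 0.073, adjusted p = 2.58e-05). Stt3b, a catalytic subunit of the oligosaccharyltransferase, was at 20.6, 17.9 and 18.2 FPKM in LSK and 59.9, 59.2 and 62.3 FPKM in GMP (log2 fold change 1.63 ± 0.085, adjusted p = 2.6e-05), Rpn1, a further subunit, at 74.5 ± 11.2 FPKM in LSK and 206 ± 10.1 FPKM in GMP (1.47 ± 0.12), and the signal peptidase subunit Spcs3 at 44.1 ± 8.44 FPKM in LSK and 139.8 ± 17.6 FPKM in GMP (1.65 ± 0.16). Srp14, which belongs to the cytosolic signal recognition particle, did not pass (193 ± 2.701 FPKM in LSK and 184 ± 9.52 FPKM in GMP; adjusted p = 0.413).

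Many ER chaperone promoters carry the ER stress response element, a CCAAT box and a CCACG box 9 bases apart, through which XBP1 and ATF6 act with NF-Y. The letters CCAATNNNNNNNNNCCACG were searched on both strands of the same 250-base windows. They occur in 35 of 27025 genes with a RefSeq promoter entry (0.130%) and in 15 of 8405 tested genes (0.178%). Of 20 matched ER chaperone genes, 7 carried them (35%), which is 7 of the 7 matches among 491 genes that rose by at least 1 log2 unit. None of 25 matched translocon genes and none of 910 genes that fell by at least 1 log2 unit carried these letters in this window. The 8 sites of these 7 genes are shown, each written from its CCAAT end, with the fixed letters in capitals.
Hspa5, 65 bases before the start: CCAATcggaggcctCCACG
Pdia6, 98 bases: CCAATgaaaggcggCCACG
Dnajc3, 105 bases: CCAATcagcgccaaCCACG
Creld2, 126 bases: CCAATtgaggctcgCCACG
Canx, 145 bases: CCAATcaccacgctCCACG
Calr, 162 bases: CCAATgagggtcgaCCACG
Hsp90b1, 212 bases: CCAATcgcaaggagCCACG
Hsp90b1, 107 bases: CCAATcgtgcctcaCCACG
The genes with a site rose by 1.31 ± 0.16 (Hspa5), 1.76 ± 0.11 (Pdia6), 1.97 ± 0.11 (Dnajc3), 1.42 ± 0.17 (Creld2), 1.102 ± 0.099 (Canx), 1.56 ± 0.068 (Calr) and 2.07 ± 0.13 (Hsp90b1). Ero1l and Fkbp11, which rose as much or more, had no match in this window, which says only that these letters are not there.

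The full windows of the 3 most abundant chaperones with a site show its setting (GRCm38.p6, written 5′ to 3′ on the strand of the gene). They lie at chr2:34771840-34772089 on the plus strand (Hspa5), chr10:86705445-86705694 on the minus strand (Hsp90b1) and chr8:84846932-84847181 on the minus strand (Calr). Capitals mark the fixed letters, which read CGTGG and ATTGG where the element lies on the opposite strand.
Hspa5: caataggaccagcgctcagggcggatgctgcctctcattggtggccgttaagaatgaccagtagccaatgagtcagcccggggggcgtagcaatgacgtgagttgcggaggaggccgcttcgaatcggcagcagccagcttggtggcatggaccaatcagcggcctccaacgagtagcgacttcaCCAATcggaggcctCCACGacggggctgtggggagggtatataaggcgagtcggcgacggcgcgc
Hsp90b1: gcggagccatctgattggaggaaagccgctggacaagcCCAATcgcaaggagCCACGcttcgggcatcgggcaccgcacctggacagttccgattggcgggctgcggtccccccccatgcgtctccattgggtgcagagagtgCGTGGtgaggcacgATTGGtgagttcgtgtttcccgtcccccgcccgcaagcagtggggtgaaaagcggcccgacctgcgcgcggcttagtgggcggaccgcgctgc
Calr: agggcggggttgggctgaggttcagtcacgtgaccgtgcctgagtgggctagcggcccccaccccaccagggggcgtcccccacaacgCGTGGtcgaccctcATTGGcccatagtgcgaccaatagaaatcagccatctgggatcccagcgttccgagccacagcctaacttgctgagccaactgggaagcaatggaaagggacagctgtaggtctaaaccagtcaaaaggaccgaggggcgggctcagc

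The sensors, transcription factors and targets of the unfolded protein response changed in both directions. Of 17 tested, 7 rose and 3 fell (median 0.38). These are 41.2% and 17.65%, beside 20.6% and 32.3% of all genes tested. Genes of the IRE1 arm rose: Ern1, which encodes IRE1 alpha, was at 4.74, 4.55 and 3.73 FPKM in LSK and 10.4, 9.203 and 7.58 FPKM in GMP (log2 fold change 0.91 ± 0.15, adjusted p = 0.00204), and its splicing target Xbp1 at 36.8, 23.2 and 22.5 FPKM in LSK and 110.0, 93.1 and 100.5 FPKM in GMP (log2 fold change 1.87 ± 0.19, adjusted p = 0.000258). Sdf2l1, an ER chaperone cofactor, was at 71.7, 47.4 and 43.5 FPKM in LSK and 283, 252 and 253 FPKM in GMP (log2 fold change 2.29 ± 0.18, adjusted p = 0.000101). Atf6 rose from 4.09 ± 0.878 to 7.48 ± 0.388 FPKM (log2 fold change 0.75 ± 0.15, adjusted p = 0.00544). In the PERK arm, Eif2ak3, which encodes PERK, did not pass (1.18 ± 0.459 FPKM in LSK and 1.5997 ± 0.0941 FPKM in GMP; log2 fold change 0.27 ± 0.16, adjusted p = 0.18) with all libraries and was called higher without LSK replicate 1 (0.44, adjusted p = 0.0171). Its effector Atf4 did not pass (148, 197 and 179.5 FPKM in LSK and 119, 171 and 157 FPKM in GMP; log2 fold change -0.24 ± 0.16, adjusted p = 0.255). Trib3, a pseudokinase induced by ATF4 and CHOP, was at 3.56, 3.096 and 2.05 FPKM in LSK and 0.132, 0.319 and 0.142 FPKM in GMP (log2 fold change -1.69 ± 0.16, adjusted p = 0.000227). Ppp1r15a (GADD34), which is also a stress-inducible early gene, was at 138, 234 and 218 FPKM in LSK and 47.1, 79.004 and 68.3 FPKM in GMP (log2 fold change -1.58 ± 0.25, adjusted p = 0.00199). Ddit3, CHOP, was at 30.6, 38.9 and 35.3 FPKM in LSK and 16.3, 26.4 and 27.6 FPKM in GMP, and its call (adjusted p = 0.0473) was lost without any single library other than GMP replicate 3 (adjusted p of 0.0514 to 0.135). It was also lost with pseudocount 0.1, no filter, quantile normalization, median-ratio scaling, no trend and all 24 libraries in 1 fit (adjusted p of 0.0505 to 0.0987). Gene-level FPKM do not separate spliced from unspliced Xbp1.

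In several enzyme families of metabolism 1 isoform rose while another fell. The pentose phosphate pathway, which supplies NADPH, rose in 7 of 8 genes, or 87.5% beside 20.6% of all genes tested (median 0.996). G6pdx, its rate-limiting enzyme, was at 45.1, 32.2 and 39.9 FPKM in LSK and 134, 124 and 130.5 FPKM in GMP (log2 fold change 1.71 ± 0.12, adjusted p = 7.16e-05). Pgd, the next NADPH-forming enzyme, was at 56.98, 44.1 and 51.2 FPKM in LSK and 204, 181 and 179.7 FPKM in GMP (log2 fold change 1.88 ± 0.11, adjusted p = 3.48e-05). Glycolysis had 15 of 27 members higher and 8 lower (median 0.41). These are 55.6% and 29.6%, beside 20.6% and 32.3% of all genes tested, so the share that fell was near that of all genes. Hk3, a hexokinase of myeloid cells, was at 18.97, 14.2 and 17.9 FPKM in LSK and 141, 159.8 and 171 FPKM in GMP (log2 fold change 3.14 ± 0.13, adjusted p = 1.57e-05), whereas the widely expressed Hk1 fell from 36.9 ± 4.28 to 21.5 ± 2.29 FPKM (log2 fold change -0.75 ± 0.12, adjusted p = 0.00187), so that the order of the 2 was reversed between the populations. Among the phosphofructokinases Pfkp rose from 11.7 ± 0.854 to 28.1 ± 1.297 FPKM (log2 fold change 1.19 ± 0.093, adjusted p = 9.27e-05), while Pfkm (17.1, 17.5 and 19.5 FPKM in LSK and 3.97, 4.79 and 5.03 FPKM in GMP; log2 fold change -1.77 ± 0.12, adjusted p = 5.39e-05) and Pfkl (51.6 ± 4.505 FPKM in LSK and 31.6 ± 0.968 FPKM in GMP; log2 fold change -0.69 ± 0.089, adjusted p = 0.000767) fell. Aldoc fell from 7.41 ± 1.02 to 0.41003 ± 0.185 FPKM (log2 fold change -2.58 ± 0.15, adjusted p = 3.13e-05) and the far more abundant Aldoa rose by 0.61 ± 0.068 (adjusted p = 0.000391). Gpi1 (1.32 ± 0.073) and Eno1 (1.23 ± 0.092) rose, Tpi1 did not pass (adjusted p = 0.3), and the glucose transporters Slc2a1 (-0.79 ± 0.14) and Slc2a3 (-1.16 ± 0.25) fell.

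Haem synthesis was uneven along its steps. Alas1, the first and rate-limiting enzyme outside red cells, was at 34.4, 21.02 and 25.7 FPKM in LSK and 264, 226 and 228 FPKM in GMP (log2 fold change 3.13 ± 0.17, adjusted p = 2.98e-05). Alad, the second enzyme, went down at 17.8, 15.5 and 14.5 FPKM in LSK and 7.82, 6.31 and 5.97 FPKM in GMP (log2 fold change -1.14 ± 0.13, adjusted p = 0.000493). Fech, the last, rose by 0.66 ± 0.13 (adjusted p = 0.00479). In the TCA cycle 14 of 26 genes rose and 2 fell (median 0.25), or 53.85% and 7.69%, beside 20.6% and 32.3% of all genes tested. Mpc1, the mitochondrial pyruvate carrier, had the largest rise (75.6 ± 2.44 FPKM in LSK and 144 ± 4.97 FPKM in GMP; log2 fold change 0.92 ± 0.066, adjusted p = 7.11e-05). Idh3b (-0.34) fell while Idh3a (0.42) rose and Idh3g did not pass (adjusted p = 0.242), although the 3 proteins form the same enzyme. The mitochondrial ribosome had 13 of 40 members higher (32.5%), nucleotide synthesis 10 of 21 higher (47.6%) and 2 lower (9.52%), and serine and one-carbon metabolism 6 of 14 higher (42.9%) and 3 lower (21.4%). Their medians lay between 0.17 and 0.21, where another scaling can change a count: quantile normalization called 3 mitochondrial ribosome genes lower where the main scaling called none. Without LSK replicate 1 the mitochondrial ribosome had 20 members higher. Without GMP replicate 2 the TCA genes gave 6 higher and 2 lower and without GMP replicate 3 they gave 8 and 1, and the serine and one-carbon genes gave 3 and 2 without GMP replicate 1 or 3.

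**Figure D4:**
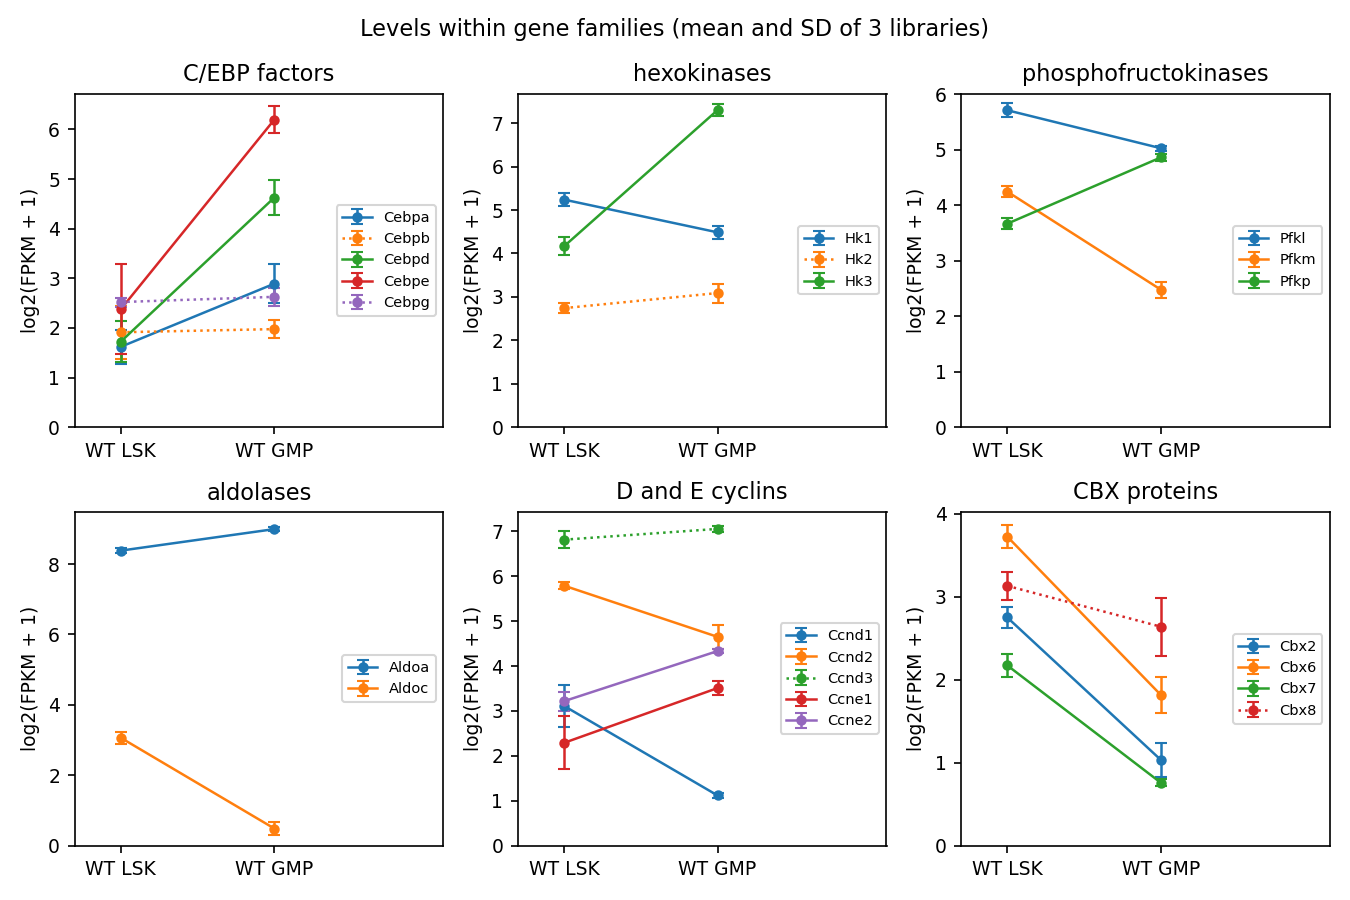
Levels of members of 6 gene families in wild-type LSK and GMP, as the mean of log2(FPKM + 1) over 3 libraries with the SD as bar; solid lines are called and dotted lines are not. Members of a family change in opposite directions: Hk3 rises and Hk1 falls, Pfkp rises and Pfkm falls, and the E cyclins rise while Ccnd1 and Ccnd2 fall.

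Immediate early genes, which respond within minutes to growth factors and to handling, were lower in GMP: 18 of 27 fell and none rose (median -1.45). The falls are 66.7%, beside 32.3% of all genes tested. Their count was 23 without LSK replicate 1 (median -1.89) and 15 without LSK replicate 2 (-1.23) or 3 (-1.33). With the replicate number as a block or sex as a covariate it was 23. Nr4a1 was at 71.5, 578 and 606 FPKM in LSK and 3.29, 17.6 and 14.4 FPKM in GMP (log2 fold change -4.78 ± 0.92, adjusted p = 0.00464). Egr1 was at 156, 330.1 and 280.4 FPKM in LSK and 17.8, 40.02 and 37.9 FPKM in GMP (log2 fold change -2.98 ± 0.38, adjusted p = 0.000693). Within each population replicate 1 was the lowest library for both genes, yet LSK replicate 1 stayed above all GMP libraries. Fos was at 981, 3044 and 3316 FPKM in LSK and 216, 656 and 616 FPKM in GMP, with a call (adjusted p = 0.0157) that was lost without LSK replicate 2 (adjusted p = 0.0557) or LSK replicate 3 (0.0528), and the values of Jun overlapped (139.9, 238 and 259.9 FPKM in LSK and 87.5, 127 and 161 FPKM in GMP; adjusted p = 0.0672). Jun was called lower without LSK replicate 1 (-1.03, adjusted p = 0.0149) or GMP replicate 3 (adjusted p = 0.0485). Dusp1 did not pass (adjusted p = 0.545).

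Of 28 DNA damage and p53 target genes 9 rose and 7 fell (32.1% and 25%, beside 20.6% and 32.3% of all genes tested), with 4 and 6 without GMP replicate 2 or 3. Gadd45a was at 24.8, 21.3 and 19.9 FPKM in LSK and 41.1, 66.3 and 63.8 FPKM in GMP (log2 fold change 1.31 ± 0.19, adjusted p = 0.00133). Sesn1, a stress-response protein under p53 and FOXO, was at 47.9, 34.7 and 48.6 FPKM in LSK and 11.4, 13.96 and 13.8 FPKM in GMP (log2 fold change -1.66 ± 0.16, adjusted p = 0.000191). Xrcc5, which encodes the Ku80 subunit of end joining, fell from 15.4 ± 2.03 to 4.79 ± 1.15 FPKM (log2 fold change -1.51 ± 0.18, adjusted p = 0.000472), while the transcript of its partner Ku70, Xrcc6, did not pass (74.1 ± 4.11 FPKM in LSK and 60.3 ± 7.38 FPKM in GMP; adjusted p = 0.0507). In the BCL2 family 6 rose and 5 fell of 16 tested (37.5% and 31.2%), with 3 and 4 without GMP replicate 3 or LSK replicate 2. Bid, which links death receptors to mitochondria, was at 43.2, 33.6 and 33.98 FPKM in LSK and 82.5, 81.7 and 86.99 FPKM in GMP (log2 fold change 1.17 ± 0.11, adjusted p = 0.000198). Mcl1, a survival factor of stem and myeloid cells, fell from 49.3 ± 13.4 to 22.8 ± 3.07 FPKM (log2 fold change -1.05 ± 0.21, adjusted p = 0.00559), Bcl2l1 fell as well (-0.75 ± 0.12, adjusted p = 0.00199), and Bcl2 did not pass (adjusted p = 0.258). Bok was at 9.56, 9.66 and 7.87 FPKM in LSK and 0.521, 1.12 and 1.23 FPKM in GMP (log2 fold change -2.37 ± 0.17, adjusted p = 7.48e-05).

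Of 52 chromatin regulators of the DNA methylation, Polycomb and related families, 26 fell and 9 rose (median -0.38). These are 50% and 17.3%, beside 32.3% and 20.6% of all genes tested. The CBX subunits, which read the Polycomb mark within the PRC1 complex, include several that fell. Cbx6 was at 12.03, 11.1 and 13.7 FPKM in LSK and 3.08, 2.58 and 2.002 FPKM in GMP (log2 fold change -1.91 ± 0.15, adjusted p = 9.27e-05), Cbx2 at 5.17, 5.696 and 6.39 FPKM in LSK and 1.11, 1.32 and 0.756 FPKM in GMP (log2 fold change -1.72 ± 0.14, adjusted p = 0.000109). Cbx7, linked to stem cell self-renewal, was at 3.63, 3.89 and 3.06 FPKM in LSK and 0.726, 0.718 and 0.634 FPKM in GMP (log2 fold change -1.41 ± 0.11, adjusted p = 8.53e-05). Cbx8 did not pass (adjusted p = 0.0719) but was called lower without GMP replicate 3 (adjusted p = 0.0274). Of these 4, Cbx6 had the highest mean in LSK and Cbx8 that in GMP (5.36 FPKM). Phc1, a further PRC1 subunit, fell from 8.53 ± 0.529 to 1.63 ± 0.463 FPKM (log2 fold change -1.87 ± 0.15, adjusted p = 0.000108), and Hmga2, an architectural protein of fetal stem cells, from 9.99 ± 0.408 to 1.27 ± 0.328 FPKM (log2 fold change -2.28 ± 0.13, adjusted p = 3.32e-05). Hdac2 (1.095 ± 0.13, adjusted p = 0.000473) and Hmgn2 (0.80 ± 0.10, adjusted p = 0.000698) were among the genes that rose.

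Of the imprinted genes, 7 of 24 were tested and 5 fell. Ndn, necdin, a growth suppressor of quiescent stem cells, was at 6.25, 11.9 and 9.999 FPKM in LSK and 0.0632, 0.0226 and 0 FPKM in GMP (log2 fold change -3.296 ± 0.21, adjusted p = 4.65e-05). Sgce was at 11.5, 14.6 and 13.8 FPKM in LSK and 0.4901, 0.899 and 0.659 FPKM in GMP (log2 fold change -3.09 ± 0.14, adjusted p = 1.99e-05). Ndn and Sgce were under 1 FPKM in every GMP library and reached the filter through LSK alone, which favours a fall. Id genes and targets of Notch, Wnt and TGF-beta signals included 13 that fell of 20 tested and none that rose. Id3 was at 23.1, 56.5 and 50.5 FPKM in LSK and 1.502, 8.68 and 4.85 FPKM in GMP (log2 fold change -2.99 ± 0.53, adjusted p = 0.00326). Smad7, a feedback inhibitor of TGF-beta signals, was at 2.696, 12.4 and 8.79 FPKM in LSK and 0.727, 1.11 and 1.12 FPKM in GMP (log2 fold change -1.99 ± 0.44, adjusted p = 0.00844), both lowest in replicate 1 within their population. Ctnnb1, beta-catenin, did not pass (51.3 ± 7.69 FPKM in LSK and 52.003 ± 1.55 FPKM in GMP; adjusted p = 0.849).

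Of 18 ABC transporters, 7 rose and 7 fell (38.9% each, beside 20.6% and 32.3% of all genes tested). Without GMP replicate 1 or 2 the counts were 4 and 5. Abcg2, the pump behind the side population of stem cells, fell from 15.8 ± 1.55 to 10.1 ± 0.907 FPKM (log2 fold change -0.59 ± 0.12, adjusted p = 0.00481), Abcg1, a cholesterol exporter, fell further (14.4 ± 2.23 FPKM in LSK and 2.29 ± 0.724 FPKM in GMP; log2 fold change -2.24 ± 0.19, adjusted p = 0.000123), and Abcd2, a peroxisomal fatty acid transporter, was at 2.91, 1.29 and 1.66 FPKM in LSK and 14.9, 14.7 and 14.5 FPKM in GMP (log2 fold change 2.45 ± 0.20, adjusted p = 0.000109). Lysosomal genes, 35 in number, had 18 that rose and 9 that fell (median 0.41). These are 51.4% and 25.7%, beside 20.6% and 32.3% of all genes tested, so the share that fell was below that of all genes. Of the cathepsins, Ctsh was at 14.1, 10.8 and 13.5 FPKM in LSK and 67.1, 64.1 and 61.4 FPKM in GMP (log2 fold change 2.24 ± 0.11, adjusted p = 2.53e-05). Ctsf was at 11.1, 10.3 and 9.49 FPKM in LSK and 2.25, 1.44 and 1.61 FPKM in GMP (log2 fold change -2.04 ± 0.14, adjusted p = 6.15e-05). Laptm5, a lysosomal membrane protein of blood cells, fell from 466 ± 56.2 to 199.8 ± 52.7 FPKM (log2 fold change -1.24 ± 0.19, adjusted p = 0.00149). Among serpins and cystatins, 9 rose and 8 fell of 21 (42.9% and 38.1%, beside 20.6% and 32.3% of all genes tested). Serpine2, a thrombin inhibitor, was at 4.67, 1.804 and 2.03 FPKM in LSK and 36.9, 44.96 and 44.2 FPKM in GMP (log2 fold change 3.56 ± 0.27, adjusted p = 8.34e-05). Serpina3g, a stem cell serpin, was at 159, 211 and 193 FPKM in LSK and 18.4, 26.1 and 25.8 FPKM in GMP (log2 fold change -2.96 ± 0.16, adjusted p = 2.98e-05).

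Markers of the other cell types that a sort of bone marrow could hold were measured alongside. The 12 tested erythroid markers had 3 that fell (25%, beside 32.3% of all genes tested), and none rose. Their summed level was 844, 1929 and 1935 FPKM in LSK and 142, 757 and 909 FPKM in GMP. The globin Hba-a1 was at 71.3, 683 and 601 FPKM in LSK and 29.4, 295 and 422 FPKM in GMP, low in replicate 1 of both. The gene copies of the globin cluster share sequence, and their separate values are uncertain. Of 5 megakaryocyte and platelet markers 3 fell. Gp9 was at 22.4, 24.8 and 23.5 FPKM in LSK and 3.35, 4.35 and 4.63 FPKM in GMP (log2 fold change -2.27 ± 0.13, adjusted p = 3.04e-05), while Pf4, platelet factor 4, was at 56.4, 26.5 and 20.7 FPKM in LSK and 30.4, 63.7 and 61.97 FPKM in GMP and did not pass with all libraries (adjusted p = 0.243) but was higher in GMP without LSK replicate 1 (1.04, adjusted p = 0.042). Of 8 dendritic cell markers, 2 reached the filter and both fell. The 8 markers summed to 7.59, 4.89 and 5.76 FPKM in LSK and 1.70, 2.22 and 1.58 FPKM in GMP. At such GMP levels a marker passes the filter mainly through LSK, which favours a fall. Stromal transcripts were uneven: Bglap, osteocalcin, was at 45.3, 0.459 and 41.6 FPKM in LSK and 20.5, 29.4 and 21.8 FPKM in GMP, near 0 in LSK replicate 2 and above 20 FPKM in the other 5 libraries. Without LSK replicate 2 it was called lower in GMP (-0.85, adjusted p = 0.01), and 4 stromal and endothelial markers fell where 1 did with all libraries. The part of these cells in the results was not tested.

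The same contrast was measured in the 3 other genotypes, on the genes tested in the wild type, with separate libraries. In ITD 2637 genes were called (23.3%), in IRE1_KO 5410 (47.8%) and in IRE1_KO_ITD 4226 (37.4%). The split by direction was 967 higher (8.55%) and 1670 lower (14.8%) in ITD, 1273 (11.3%) and 4137 (36.6%) in IRE1_KO and 1586 (14.0%) and 2640 (23.3%) in IRE1_KO_ITD. It moved with the scaling. In the same order, quantile normalization gave 1347 and 1396, 2761 and 2637, and 1959 and 1940, and median-ratio scaling 1395 and 1225, 2277 and 3079, and 2064 and 2199. Of the 2329 genes higher in wild-type GMP, 755 were also called higher in ITD, which is 32.4% of the wild-type genes and 78.1% of the ITD genes. The matching counts were 1077 for IRE1_KO (46.2% and 84.6%) and 1086 for IRE1_KO_ITD (46.6% and 68.5%). Of the 3657 genes lower in wild-type GMP, 1372 were called lower in ITD (37.5% and 82.2%), 2925 in IRE1_KO (80.0% and 70.7%) and 1985 in IRE1_KO_ITD (54.3% and 75.2%). In all 4 genotypes 436 genes were called higher and 1104 lower. The difference between the genotype's contrast and that of the wild type, tested as an interaction over 12 libraries, was called for 949 genes in ITD (8.39%), 1004 in IRE1_KO (8.88%) and 1905 in IRE1_KO_ITD (16.8%). The difference was positive for 517 genes (4.57%) and negative for 432 (3.82%) in ITD. In IRE1_KO it was positive for 129 (1.14%) and negative for 875 (7.74%), and in IRE1_KO_ITD positive for 1077 (9.53%) and negative for 828 (7.32%). For IRE1_KO quantile normalization gave 281 positive and 600 negative genes and median-ratio scaling 190 and 532, and for ITD median-ratio scaling gave 855 and 445. The wild-type libraries are shared by these 3 differences. The count in IRE1_KO stayed between 697 and 999 when single libraries were left out. In ITD it fell to 210 without WT GMP replicate 3, 214 without WT LSK replicate 2, 215 without WT GMP replicate 2, 338 and 362 without ITD LSK replicates 2 and 3 and 508 without ITD GMP replicate 3, and it rose to 1572 without ITD GMP replicate 1. In IRE1_KO_ITD it fell to 1175 without its LSK replicate 3, 1180 without WT GMP replicate 3 and 1235 without WT GMP replicate 2. Of the contrasts themselves, that in ITD fell to between 1101 and 1689 genes without its GMP replicate 2 or 3 or any of its LSK replicates, and that in IRE1_KO_ITD to 2756 without its GMP replicate 2.

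Among the 24 genes with the highest and lowest wild-type fold changes, 23 kept their direction in all 4 genotypes. Of all genes called higher in the wild type, 75.1% kept their sign in ITD, 84.8% in IRE1_KO and 80.3% in IRE1_KO_ITD. For those called lower the shares were 89.5%, 97.3% and 90.1%. The 24 genes were picked as the extremes of the wild-type contrast, and that choice by itself favours smaller changes in the other genotypes. Elane was higher in GMP by 4.07 ± 0.30 in ITD, 4.002 ± 0.34 in IRE1_KO and 5.05 ± 0.39 in IRE1_KO_ITD, and Gm5111 was at -4.85 ± 0.34, -5.36 ± 0.28 and -4.16 ± 0.14. The exception was Wfdc17, with -1.11 ± 0.62 in ITD, -4.65 ± 0.19 in IRE1_KO and 1.19 ± 0.42 in IRE1_KO_ITD, where the wild type had -4.85 ± 0.14. The interaction was called for Wfdc17 in ITD (3.75 ± 0.69, adjusted p = 0.0159) and in IRE1_KO_ITD (6.04 ± 0.47, adjusted p = 4.54e-05). Flt3 fell less in both genotypes that carry the duplication, with a difference from the wild type of 2.45 ± 0.49, adjusted p = 0.0205 in ITD and 2.48 ± 0.38, adjusted p = 0.00218 in IRE1_KO_ITD. Tsc22d1 (2.43 ± 0.50, adjusted p = 0.0212 and 2.28 ± 0.63, adjusted p = 0.0321), Pdzk1ip1 (1.58 ± 0.32, adjusted p = 0.0212 and 1.37 ± 0.37, adjusted p = 0.0314) and Gimap6 (1.11 ± 0.27, adjusted p = 0.0323 and 1.34 ± 0.25, adjusted p = 0.00635) showed the same direction of difference in these genotypes. Prg3 was higher in GMP by less in IRE1_KO_ITD than in the wild type, with a difference of -2.79 ± 0.65, adjusted p = 0.0162.

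**Figure D5:**
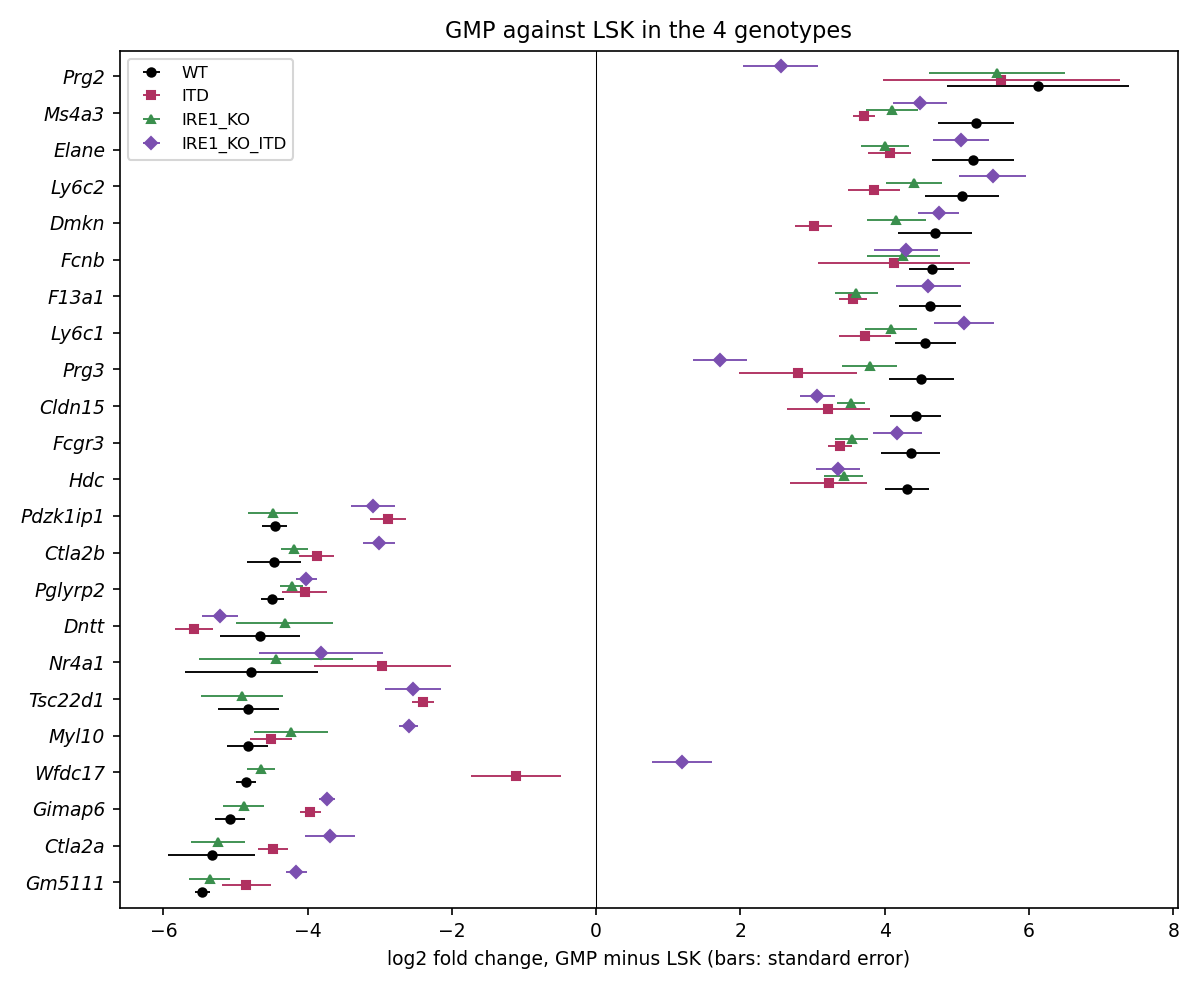
Log2 fold changes, GMP minus LSK, of the 12 genes with the highest and 11 of the 12 with the lowest wild-type values, in the 4 genotypes (3 libraries of each population per genotype), with standard errors as bars. Apart from Wfdc17, which is at 1.19 in IRE1_KO_ITD, each gene lies on the same side of 0 in all genotypes.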

How the data were processed

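RNA from sorted mouse bone marrow cells was sequenced, and the authors deposited 1 table of FPKM values per library with 23991 gene symbols. Reads were aligned with STAR to mm10 and FPKM values made with Cufflinks, per the submitters' processing notes, in which no versions are named. The labels' protocols and the series text name different library kits, and neither is assumed here. Samples were grouped by their labels. Genes at 1 FPKM or more in at least 3 of the 6 wild-type libraries were tested on log2(FPKM + 1) with limma 3.58.1 in R 4.3.3 (moderated test with a mean-variance trend), with p-values adjusted by Benjamini-Hochberg over all 11307 genes. The other genotypes were fitted on the same genes over their own 6 libraries, and differences between genotypes as an interaction over 12. Tables and figures were made with Python 3.11.15, pandas 2.3.3, numpy 2.4.6 and matplotlib 3.10.9. FPKM hold no counts, so no count model was used and no counting interval is given. Tested on simulated data of the same 11307 genes in 6 libraries, a change of 1 log2 unit was found in 77.2% of the genes given it and a change of 2 in 94%, at 8.8 false calls on average. Changes were given only to a small set of genes well above the filter, and the noise was drawn independently for each gene. In the real comparison 52.9% of genes were called and single libraries stood apart, so these rates need not hold for it. FPKM are scaled to the size of the library, so a rise of abundant genes can lower the values of others. Their sum is not fixed: it was 611460 to 659099 in the GMP libraries and 528399 to 543663 in the LSK libraries. A gene's value counts all its transcripts.

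Genes named are the gate genes, the 12 called genes with the highest and the 12 with the lowest fold changes whose groups did not overlap and whose higher mean was at least 5 FPKM, up to 4 called genes in each direction and 2 uncalled genes per list under the same minimum, and any member of the small lists. Short loci, picked out by symbol (such as Mir, Snord, Rnu and Scarna) and not by length, were left unnamed among the highest and lowest. The comparison and the gene lists were chosen with earlier results of these data known. Aldoa, Calr, Canx, Cbx7, Cbx8, Cpa3, Creld2, Dnajc3, Hk1, Klf1, Mmp9, Mpo, Pdia6, Pfkl, Pfkp, Srgn and Tyrobp were named after their values were seen. Some genes that this rule names are not reported here. Promoter windows were the 250 bases before the RefSeq start (GRCm38.p6), searched for 7 motifs. Alternatives covered the pseudocount, the filter, the scaling, the replicate number as a block, sex as a covariate, the trend, the libraries in the fit and leaving out each library.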

Additional observations from a re-analysis of the deposited data

Results flagged for a closer look

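The difference between populations was itself different in the other genotypes for part of the genes, by an interaction test in limma with Benjamini-Hochberg adjustment. The number of genes with a called difference from the wild type was 949 in ITD, 1004 in IRE1_KO and 1905 in IRE1_KO_ITD. Among the gate genes and the 24 genes with the highest and lowest wild-type fold changes, the differences called were as follows, each as the genotype's log2 fold change minus that of the wild type. A positive value beside a wild-type fall is a smaller fall or a rise. The 24 genes were picked by their wild-type values, so the choice itself favours smaller changes in the other genotypes.

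In ITD, Flt3 differed by 2.45 ± 0.49 (adjusted p = 0.0205), Gimap6 by 1.11 ± 0.27 (adjusted p = 0.0323), Wfdc17 by 3.75 ± 0.69 (adjusted p = 0.0159), Tsc22d1 by 2.43 ± 0.50 (adjusted p = 0.0212) and Pdzk1ip1 by 1.58 ± 0.32 (adjusted p = 0.0212). In IRE1_KO_ITD, Flt3 differed by 2.48 ± 0.38 (adjusted p = 0.00218), Gimap6 by 1.34 ± 0.25 (adjusted p = 0.00635), Wfdc17 by 6.04 ± 0.47 (adjusted p = 4.54e-05), Tsc22d1 by 2.28 ± 0.63 (adjusted p = 0.0321) and Pdzk1ip1 by 1.37 ± 0.37 (adjusted p = 0.0314). Ly6a (1.69 ± 0.35, adjusted p = 0.00999), Gm5111 (1.30 ± 0.18, adjusted p = 0.00129) and Myl10 (2.23 ± 0.34, adjusted p = 0.00228) also had smaller falls in IRE1_KO_ITD, while Cd48 fell further (-0.78 ± 0.21, adjusted p = 0.0276) and Prg3 rose less (-2.79 ± 0.65, adjusted p = 0.0162). Both genotypes share the wild-type libraries, so their differences are not independent of each other.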

How the results depend on the processing

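With pseudocount 0.1, no filter, quantile normalization, median-ratio scaling, no trend and the replicate number as a block, the counts of genes called in the 7 comparisons stayed within 1.5 times of the value reported. So did those with sex as a covariate, run in all but ITD, and with all 24 libraries in 1 fit, run for the wild type alone. With single libraries left out they ran from 4800 to 5649 in the wild type, 1101 to 3955 in ITD, 4359 to 5081 in IRE1_KO and 2756 to 4961 in IRE1_KO_ITD. The differences from the wild type ran from 210 to 1572 in ITD, 697 to 999 in IRE1_KO and 1175 to 2627 in IRE1_KO_ITD. Of the genes named, Pcna turned to a called fall (-0.24) under quantile normalization and Bglap to one (-0.85) without LSK replicate 2, where leaving out single libraries gave values up to 1.64, and the cause was not tested. Quantile normalization moved the median of all genes from -0.10 to 0.01.

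Sex could not be a covariate in ITD, where all libraries were female, so that alternative was not run there. Replicate numbers are shared by the groups, but the labels do not say that a number marks a pair. Deviations of same-numbered wild-type libraries correlated at 0.18, 0.067 and 0.12 for replicates 1, 2 and 3, and 5 of the 6 libraries correlated best with their own number. With the replicate number as a block, 6013 genes were called in the wild type, 2473 in ITD, 5963 in IRE1_KO and 3510 in IRE1_KO_ITD, and the differences from the wild type were called for 941, 1108 and 1537 genes. The block ended the calls of Il7r and Socs6 and added calls for Atf4, C1qa, Ccnd3, Hba-a1 and Jun. Without counts, the precision of low values is not known.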
